A study of Mus musculus with 11 samples.

Results

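In the hair follicle bulge of mouse back skin, CD34 and CD49f (integrin alpha 6) together mark keratinocytes of the stem cell niche, whereas SCA-1 (the product of Ly6a) is carried by keratinocytes of the interfollicular epidermis (IFE) and infundibulum. The comparison described here is that of tdT+ with tdTneg cells within the CD49f+CD34+SCA-1+ population of epidermal back skin (EBS), and it rests on 5 of the 11 libraries of the series, 3 of tdT+ and 2 of tdTneg cells, which the sample titles assign to these groups. The other 6 libraries hold tdT+ and tdTneg CD49f+CD34+ cells, 3 of each, which the study's methods describe as gated negative for SCA-1. All cells of all 4 groups came from male CD4Cre/tdT mice, in which a Cre recombinase driven by Cd4 regulatory sequences removes a stop cassette in front of a tdTomato gene in the ROSA26 locus. The tdT+ and the tdTneg cells therefore share their genotype and differ in whether the reporter was switched on. Mice were 29 weeks old for replicate 1 and 32 weeks old for replicates 2 and 3, were not treated, and each biological replicate held material from 2 mice. The p-values thus measure the spread between such pools. The methods count 3 biological replicates in all, which was read as 1 pool for each replicate number, shared by its libraries, though neither labels nor methods state this. The question the comparison addresses is how cells with a history of Cd4-driven Cre differ in their transcripts from neighbouring cells that passed the same antibody gates without it.

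Some background on the cells that such a gate can hold is needed to read the gene lists. The reporter is permanent, so a tdT+ cell, or an ancestor of it, has made Cre at some time, and it need not contain Cd4 RNA when sorted. T cells that carry the alpha beta receptor descend from thymocytes that expressed CD4, and mouse epidermis also houses resident T cells with a gamma delta receptor. The receptor chains are displayed together with the CD3 proteins, which pass the signal on to kinases such as ZAP-70. Endothelial cells line blood and lymph vessels, and those of many vessels carry CD34, SCA-1 and integrin alpha 6, the antigens by which the cells were sorted. In bulk RNA, fewer cells of a type and less RNA per cell of that type cannot be told apart, and this holds for every gene group below.

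The promoters of 4 genes that recur below are shown. Egfl7 and Tek are members of the pan-endothelial list and Cd3e of the T cell receptor list, while Cd34 encodes an antigen of the sort. ETS factors, which bind sites with a GGAA core, are known regulators in endothelial cells and T cells. The promoters are 250 bases before the transcription start from RefSeq (GRCm38.p6), written 5′ to 3′ on the strand of the gene. Capitals mark each match to CAGGAAG, an ETS-type motif, or to its reverse complement CTTCCTG. Cd34 (chr1:194938571-194938820, plus strand), Egfl7 (chr2:26580833-26581082, plus strand, the first of its 3 windows), Tek (chr4:94739039-94739288, plus strand) and Cd3e (chr9:45009612-45009861, minus strand) read as follows.
Cd34: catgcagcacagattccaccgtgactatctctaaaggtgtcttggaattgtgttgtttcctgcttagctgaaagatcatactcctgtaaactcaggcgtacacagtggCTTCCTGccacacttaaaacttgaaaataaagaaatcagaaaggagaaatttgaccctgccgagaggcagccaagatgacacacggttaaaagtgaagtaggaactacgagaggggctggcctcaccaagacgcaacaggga
Egfl7: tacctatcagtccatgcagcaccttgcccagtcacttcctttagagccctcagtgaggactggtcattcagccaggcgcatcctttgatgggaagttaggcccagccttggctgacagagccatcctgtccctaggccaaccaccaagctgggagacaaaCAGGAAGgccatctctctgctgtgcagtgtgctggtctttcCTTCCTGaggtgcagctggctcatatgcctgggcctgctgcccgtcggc
Tek: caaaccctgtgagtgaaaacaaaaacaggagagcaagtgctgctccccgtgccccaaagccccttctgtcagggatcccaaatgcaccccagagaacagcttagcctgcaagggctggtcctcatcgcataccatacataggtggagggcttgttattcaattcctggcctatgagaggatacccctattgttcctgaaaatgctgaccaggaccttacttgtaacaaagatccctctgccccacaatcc
Cd3e: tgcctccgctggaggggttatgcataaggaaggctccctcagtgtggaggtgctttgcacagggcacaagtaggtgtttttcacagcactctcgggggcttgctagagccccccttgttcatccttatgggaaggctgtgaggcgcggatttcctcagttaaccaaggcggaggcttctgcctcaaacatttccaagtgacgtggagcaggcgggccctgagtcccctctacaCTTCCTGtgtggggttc
Cd34 and Cd3e held 1 match each, Egfl7 held 2 and Tek held 0. Over all 32851 windows of the RefSeq table, 10.8% held this motif on either strand. It was present in 7 of 24 windows of pan-endothelial genes (29.2%, with 18 of the 35 genes in the table) and in 9 of 29 windows of T and NK cell genes (31%, with 24 of 40 genes in the table). None of the 24 windows of outer bulge genes held it (19 of 30 genes in the table). Among genes called in the comparison, it was in 45 of 409 windows of lower genes (11%) and in 7 of 50 windows of higher genes (14%). The related motif CCGGAAG was in 6.91% of all windows and in 0 of the 24 pan-endothelial ones, and the RUNX-type motif TGTGGTT was in 4.4% of all windows and in 6 of 29 windows of T and NK cell genes (20.7%). These shares describe letters in a window and say nothing of whether a factor was bound.

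Each library held between 17409131 and 46542177 counts on Ensembl genes, 17409131 to 36593970 in the tdT+ and 23666873 to 30078680 in the tdTneg CD49f+CD34+SCA-1+ libraries. Below, normalized CPM are counts scaled to a common library total after TMM normalization, and they are not corrected for gene length. The deposited tables have 1 row that is no Ensembl gene and that the sources used here do not name. It held 254, 224 and 307 CPM of library total in the tdT+ and 4.89 and 4.10 in the tdTneg CD49f+CD34+SCA-1+ libraries, and 133, 2.05 and 252 in the tdT+ and 3.78, 2.54 and 2.80 in the tdTneg CD49f+CD34+ libraries. The library labelled tdT+ CD49f+CD34+ replicate 2 (2.05 CPM, 95% Wilson interval 1.49 to 2.83, counting error only) was thus at the level of the tdTneg libraries, and it also had the highest summed level of pan-endothelial genes of the 6 CD49f+CD34+ libraries (385, 1433 and 169.7 CPM in the tdT+ and 197, 450.5 and 239.6 CPM in the tdTneg libraries). It is in neither CD49f+CD34+SCA-1+ group but enters the shared estimate of the spread and, as 1 of 3 libraries of its group, the comparison of the tdT effect between the populations.

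Between tdT+ and tdTneg CD49f+CD34+SCA-1+ cells, lower genes outnumbered higher ones. Of 20307 genes tested, 470 were called differentially expressed (2.31%), 51 higher (0.251%) and 419 lower (2.06%) in the tdT+ cells, where a call needs a Benjamini-Hochberg adjusted p of the edgeR quasi-likelihood test below 0.05 and a log2 fold change beyond 1 in either direction. At an unadjusted p-value under 0.05, 5.17% of genes were higher and 9.42% lower. The 3 tdT+ libraries did not overlap with the 2 tdTneg libraries for 15.8% of genes in the higher and for 17.2% in the lower direction. The median log2 fold change over all genes tested was 0.04. The comparison was imprecise, since the median half-width of a 95% confidence interval was 1.02 on the log2 scale and the interval lay within 1 of 0 for 34.9% of genes. When tdT+ CD49f+CD34+ replicate 2 was omitted, 554 genes were called (55 higher, 499 lower). When a tdTneg CD49f+CD34+SCA-1+ library is omitted, the 1 left is assumed to vary like the other groups. Among the fits that left out 1 library, the count of called genes was lowest there. It was 240 (12 higher) without replicate 1 and 97 (0 higher) without replicate 2 of that group, 267 and 268 (36 and 13 higher) without replicates 1 and 3 of the tdT+ CD49f+CD34+SCA-1+ libraries and 378 (16 higher) without replicate 2. Without tdTneg CD49f+CD34+ replicate 1 it was 322 (29 higher), and without tdT+ CD49f+CD34+ replicate 3 it was 700 (630 lower). DESeq2 called 1126 genes (199 higher, 927 lower), and edgeR on the 5 CD49f+CD34+SCA-1+ libraries alone called 885 (121 higher, 764 lower).

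**Figure D1:**
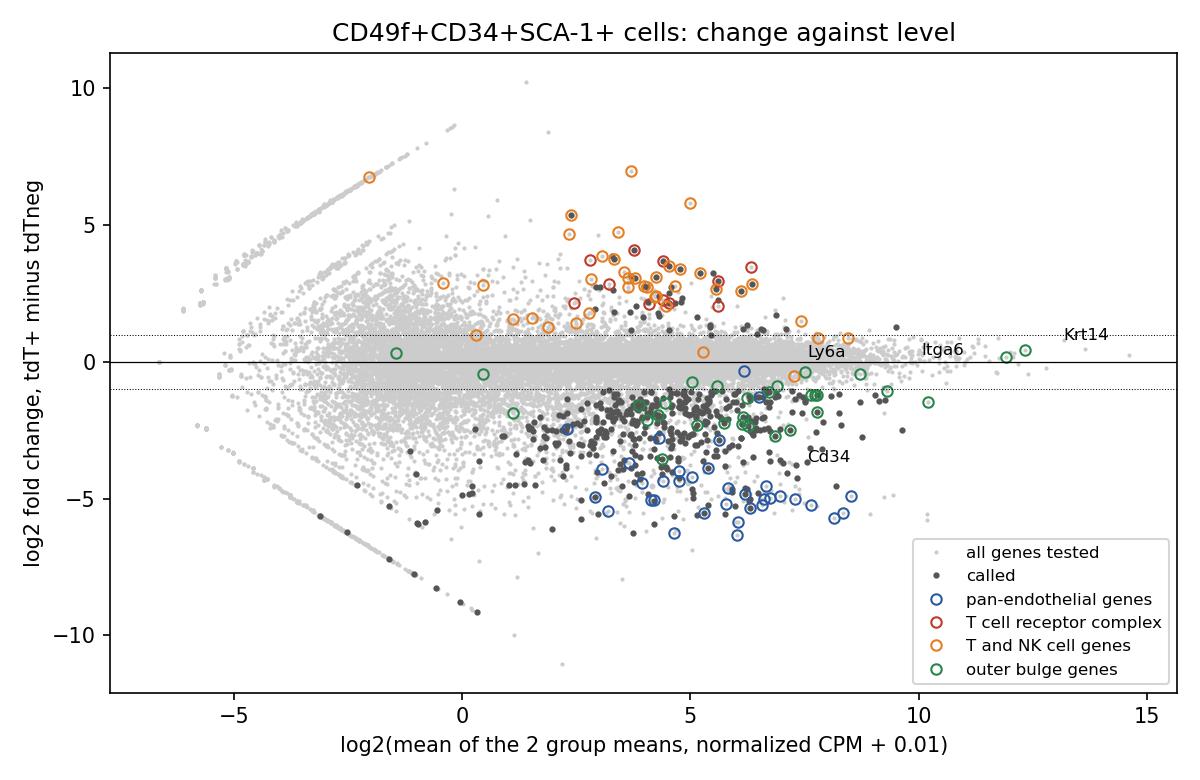
Log2 fold change between tdT+ and tdTneg CD49f+CD34+SCA-1+ cells (y axis) against the log2 mean level of each gene in normalized CPM (x axis), for all 20307 genes tested (light dots), the 470 called genes (dark dots) and members of 4 marker lists (open circles). Dotted lines mark log2 fold changes of -1 and 1. Pan-endothelial genes lie below 0 and T cell receptor genes above 0, while Ly6a and Itga6 lie near 0, Krt14 at 0.80 and Cd34 at -3.68.

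Of the 3 antigens used for sorting, CD34 was the only one whose gene was called. Cd34 (ENSMUSG00000016494, chromosome 1, 194938819 to 194961279) was measured at 24.3, 35.7 and 22.3 normalized CPM in the tdT+ and 319.6 and 383 in the tdTneg libraries. All 3 tdT+ libraries lay below both tdTneg libraries, and the group means were 27.4 ± 7.2 (SD, n = 3) and 351 ± 44.6 (SD, n = 2) CPM. Its log2 fold change was -3.68 (SE 0.33, edgeR adjusted p = 0.000776), and it stayed called in each of the 11 fits that left out 1 library, with a largest adjusted p of 0.00796. In the CD49f+CD34+ libraries it was at 468, 735 and 842 CPM in tdT+ and 864, 638 and 1130.1 CPM in tdTneg cells, so the tdT+ CD49f+CD34+SCA-1+ cells had the lowest Cd34 level of all 4 groups. Ly6a, which encodes SCA-1, was at 158, 294 and 153 normalized CPM in the tdT+ and 187 and 172 in the tdTneg libraries, with overlapping libraries and a log2 fold change of 0.17 (95% interval -1.21 to 1.55, edgeR adjusted p = 0.957). Itga6, which encodes CD49f, was at 1276, 988 and 1259.8 normalized CPM in the tdT+ and 1021 and 932 in the tdTneg libraries, which also overlapped (log2 fold change 0.27, 95% interval -0.20 to 0.74, edgeR adjusted p = 0.651). Cd4 itself was low, at 4.64, 4.09 and 0.877 normalized CPM in the tdT+ and 0.949 and 0.126 in the tdTneg libraries. The lowest tdT+ and the highest tdTneg value overlapped, and the log2 fold change of 2.55 (SE 1.31) was not called (edgeR adjusted p = 0.425).

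T cell genes were higher in the tdT+ cells. All 11 genes of the T cell receptor complex list were higher in every tdT+ than in every tdTneg library, as 15.8% of all genes were, and 4 of the 11 were called against 0.251% of all genes. The median log2 fold change of the list was 2.83, against 0.04 over all genes tested. Its summed level was 261, 796 and 496 CPM in the tdT+ and 77.4 and 73.3 CPM in the tdTneg libraries, with means of 518 ± 268 (SD, n = 3) and 75.3 ± 2.88 (SD, n = 2). The tdT+ libraries lay well above the tdTneg libraries but varied among themselves, replicate 1 being the lowest. In CD49f+CD34+ cells the same sum was 30.1, 47.6 and 53.9 CPM in tdT+ and 12, 9.38 and 14 CPM in tdTneg libraries.

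The 4 called members were the receptor constant genes Trac and Trbc2 and the CD3 genes Cd3d and Cd3e. Trac (ENSMUSG00000076928, chromosome 14, 54220521 to 54224206), the constant region of the alpha chain, was at 15.5, 35.3 and 25.9 normalized CPM in the tdT+ and 1.61 and 1.34 in the tdTneg libraries. It had the largest fold change of the list, a log2 fold change of 4.11 ± 0.71 (SE, edgeR adjusted p = 0.0154). Trbc2, a constant region of the beta chain, was at 19.5, 56.9 and 36.7 normalized CPM in the tdT+ and 9.46 and 7.29 in the tdTneg libraries, a log2 fold change of 2.17 ± 0.46 (SE, edgeR adjusted p = 0.0395). Cd3e (ENSMUSG00000032093, chromosome 9, 44998740 to 45009627) was at 47.1, 117 and 95.5 normalized CPM in the tdT+ and 9.78 and 12.6 in the tdTneg libraries, a log2 fold change of 2.95 ± 0.52 (SE, edgeR adjusted p = 0.0174), and Cd3d was at 13.4, 71.5 and 33.1 normalized CPM in the tdT+ and 2.66 and 3.39 in the tdTneg libraries, a log2 fold change of 3.70 ± 0.66 (SE, edgeR adjusted p = 0.0176). For each of these 4 genes all tdT+ libraries were higher and replicate 1 was the lowest of them. Trdc, the constant region of the delta chain, was at 53.9, 92.9 and 89.9 normalized CPM in the tdT+ and 19.9 and 18.1 in the tdTneg libraries and was not called (2.05, edgeR adjusted p = 0.2), nor was Cd3g at 56.6, 272 and 117 normalized CPM in the tdT+ and 14.5 and 12.1 in the tdTneg libraries (3.48, edgeR adjusted p = 0.0846). Both were nonetheless separated between the groups. Trdc was called by DESeq2 (adjusted p = 0.015), on the 5 CD49f+CD34+SCA-1+ libraries alone (edgeR adjusted p = 0.00677) and with tdTneg CD49f+CD34+ replicate 2 omitted (edgeR adjusted p = 0.0392). Cd3g was called by DESeq2 (adjusted p = 0.00348) and when every gene with a count was tested (edgeR adjusted p = 0.00225). Cd3g was called as well on the 5 CD49f+CD34+SCA-1+ libraries alone (edgeR adjusted p = 0.0216) and with tdTneg CD49f+CD34+ replicate 2 omitted (edgeR adjusted p = 0.0343). Trbc2 can share reads with its close copy Trbc1, so the split between them is uncertain. With the replicate number as a block, Trbc2 was no longer called (edgeR adjusted p = 0.0789).

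Of the 39 further T and NK cell genes tested, 12 were called and all 12 were higher, against 0.251% of all genes. The median log2 fold change was 2.79, and 33 of the 39 were higher in every tdT+ library than in both tdTneg libraries, as 15.8% of all genes were. In the other direction, 1 of the 39 was lower in every tdT+ library, as 17.2% of all genes were, and the lowest log2 fold change was -0.52. Signalling genes downstream of the receptor were among the called members. Zap70, the kinase that docks on the CD3 chains, was at 19.4, 39 and 24.7 normalized CPM in the tdT+ and 4.81 and 3.18 in the tdTneg libraries (2.79, edgeR adjusted p = 0.026). The adaptor gene Lat was at 21.2, 42.5 and 37.7 normalized CPM in the tdT+ and 5.25 and 2.56 in the tdTneg libraries (3.11, edgeR adjusted p = 0.0395), and the transmembrane adaptor gene Sit1 at 4.98, 18.2 and 7.64 normalized CPM in the tdT+ and 0.348 and 0.126 in the tdTneg libraries (5.39, edgeR adjusted p = 0.0486). In these 3 genes no tdT+ library overlapped with a tdTneg library.

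Genes of tissue residence, of the cell surface and of cytotoxic cells were the others. Itgae encodes the integrin chain CD103, which binds E-cadherin on keratinocytes, and it was at 85.7, 173 and 169 normalized CPM in the tdT+ and 26.1 and 13.4 in the tdTneg libraries, a log2 fold change of 2.85 ± 0.49 (SE, edgeR adjusted p = 0.0158). Cxcr6, a chemokine receptor of resident T cells, was at 24.8, 52.4 and 51.1 normalized CPM in the tdT+ and 4.4 and 3.06 in the tdTneg libraries, a log2 fold change of 3.52 ± 0.45 (SE, edgeR adjusted p = 0.00368). It had the smallest adjusted p of the list. Cd7, Cd96 and Cd2, which encode surface receptors of T and NK cells, had log2 fold changes of 2.68, 2.74 and 3.08 with edgeR adjusted p-values of 0.00789, 0.0158 and 0.0395. Il2rb, the interleukin-2 and interleukin-15 receptor beta chain, was at 72.5, 148 and 134 normalized CPM in the tdT+ and 20.8 and 18.7 in the tdTneg libraries (2.58, edgeR adjusted p = 0.0493). Xcl1, a chemokine made by T and NK cells, was at 12.2, 23.7 and 20.5 normalized CPM in the tdT+ and 1.49 and 1.26 in the tdTneg libraries (3.77, edgeR adjusted p = 0.0339), and the granule gene Nkg7 was at 26.3, 109 and 64.8 normalized CPM in the tdT+ and 6.61 and 7.25 in the tdTneg libraries (3.27, edgeR adjusted p = 0.0253). Cd8a and Cd8b1, the chains of CD8, were at 27.6, 85.9 and 73.5 normalized CPM in the tdT+ and 2.18 and 0 in the tdTneg libraries and at 10.7, 35.5 and 30.7 normalized CPM in the tdT+ and 0.38 and 0 in the tdTneg libraries, without overlap, but neither was called (edgeR adjusted p = 0.0714 and 0.0729), and replicate 2 of the tdTneg libraries held 0 counts of both. In other fits they passed. Cd8a was called by DESeq2 (adjusted p = 0.000588), when every gene with a count was tested (edgeR adjusted p = 0.0013) and on the 5 CD49f+CD34+SCA-1+ libraries alone (edgeR adjusted p = 0.0262). Cd8a was called as well with tdT+ CD49f+CD34+ replicate 3 omitted (edgeR adjusted p = 0.041) and with tdTneg CD49f+CD34+SCA-1+ replicate 1 omitted (edgeR adjusted p = 0.0149). Cd8b1 was called by DESeq2 (adjusted p = 4.98e-07) and when every gene with a count was tested (edgeR adjusted p = 0.00193). Cd8b1 was called as well on the 5 CD49f+CD34+SCA-1+ libraries alone (edgeR adjusted p = 0.00693) and with tdT+ CD49f+CD34+ replicate 3 omitted (edgeR adjusted p = 0.0149).

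The T cell calls rested on few libraries. With the replicate block, Lat, Sit1, Il2rb and Xcl1 also lost their call (edgeR adjusted p = 0.0739, 0.0866, 0.056 and 0.0619), leaving 8 of 39 T and NK cell genes and 3 of 11 receptor genes. Without tdTneg CD49f+CD34+SCA-1+ replicate 1, 0 receptor genes and 3 T and NK cell genes were called, and without replicate 2, 0 of either. Without tdT+ CD49f+CD34+SCA-1+ replicate 2 or 3, 2 receptor and 3 T and NK cell genes were called, and without tdTneg CD49f+CD34+ replicate 2, 7 receptor genes. Cxcr6 lost its call without tdTneg CD49f+CD34+SCA-1+ replicate 2 (largest edgeR adjusted p = 0.0666). Itgae lost its call without tdT+ CD49f+CD34+SCA-1+ replicate 2 or 3 or tdTneg CD49f+CD34+SCA-1+ replicate 2 (largest edgeR adjusted p = 0.207). Cd7 lost its call without tdTneg CD49f+CD34+SCA-1+ replicate 1 or 2 (largest edgeR adjusted p = 0.115). Cd3e, Zap70 and Cd96 lost their calls without tdT+ CD49f+CD34+SCA-1+ replicate 2 or 3 or tdTneg CD49f+CD34+SCA-1+ replicate 1 or 2 (largest edgeR adjusted p = 0.177, 0.332 and 0.246). Cd2 was still called without tdT+ CD49f+CD34+SCA-1+ replicate 1, tdT+ CD49f+CD34+ replicate 1 or 3 or tdTneg CD49f+CD34+ replicate 2 but in no other fit that left out 1 library (largest edgeR adjusted p = 0.353). Lat was still called without tdT+ CD49f+CD34+ replicate 1, 2 or 3 or tdTneg CD49f+CD34+ replicate 2 but in no other fit that left out 1 library (largest edgeR adjusted p = 0.416). Il2rb was still called without tdT+ CD49f+CD34+ replicate 1 or 2 or tdTneg CD49f+CD34+ replicate 2 or 3 but in no other fit that left out 1 library (largest edgeR adjusted p = 0.459). Trbc2 was still called without tdT+ CD49f+CD34+SCA-1+ replicate 1, tdT+ CD49f+CD34+ replicate 1, 2 or 3 or tdTneg CD49f+CD34+ replicate 2 but in no other fit that left out 1 library (largest edgeR adjusted p = 0.428).

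Of the 3 T and NK cell genes with the most counts, Bcl11b and Gata3 are transcription factors that keratinocytes also express, and Thy1 is a surface protein also found on other skin cells. Bcl11b was at 333, 272 and 259 normalized CPM in the tdT+ and 151 and 160.0 in the tdTneg libraries, and its log2 fold change of 0.89 (edgeR adjusted p = 0.0178) was below the fold threshold. Gata3 was at 536, 281 and 535 normalized CPM in the tdT+ and 313 and 178 in the tdTneg libraries, with overlapping libraries (0.88, edgeR adjusted p = 0.288). Thy1 was at 173, 347 and 239 normalized CPM in the tdT+ and 93.7 and 86.5 in the tdTneg libraries (1.49, edgeR adjusted p = 0.0834). Thy1 was called by DESeq2 (adjusted p = 0.00208) and when every gene with a count was tested (edgeR adjusted p = 0.011). Thy1 was called as well on the 5 CD49f+CD34+SCA-1+ libraries alone (edgeR adjusted p = 0.0357) and with tdT+ CD49f+CD34+ replicate 2 omitted (edgeR adjusted p = 0.0219). None of the 18 general leukocyte genes tested was called by edgeR (2 had an unadjusted p-value under 0.05, both higher, and DESeq2 also called 0), though 2 were called higher on the 5 CD49f+CD34+SCA-1+ libraries alone and 2 without tdTneg CD49f+CD34+ replicate 2. Of the 18, 10 were higher in every tdT+ library, against 15.8% of all genes, their median log2 fold change was 0.96, and their summed level was 652, 1183 and 903 CPM in the tdT+ and 288 and 682 CPM in the tdTneg libraries, which overlapped. Ptprc, the common leukocyte antigen CD45, was at 141, 229 and 179.6 normalized CPM in the tdT+ and 40.4 and 58.5 in the tdTneg libraries (1.89, edgeR adjusted p = 0.367). Ptprc was called on the 5 CD49f+CD34+SCA-1+ libraries alone (edgeR adjusted p = 0.00863) and with tdTneg CD49f+CD34+ replicate 2 omitted (edgeR adjusted p = 0.021).

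Endothelial genes were lower in the tdT+ cells. All 35 pan-endothelial genes were lower in every tdT+ library than in both tdTneg libraries, as 17.2% of all genes were, and their median log2 fold change was -4.90, against 0.04 over all genes. Of the 35, 7 were called against 2.06% of all genes. Their summed level was 225, 293 and 332.1 CPM in the tdT+ and 5156 and 5442 CPM in the tdTneg libraries, with means of 284 ± 54.1 (SD, n = 3) and 5299 ± 202 (SD, n = 2). Each of the 35 genes had its highest group mean in the tdTneg CD49f+CD34+SCA-1+ cells, and each had an unadjusted p-value under 0.05.

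**Figure D2:**
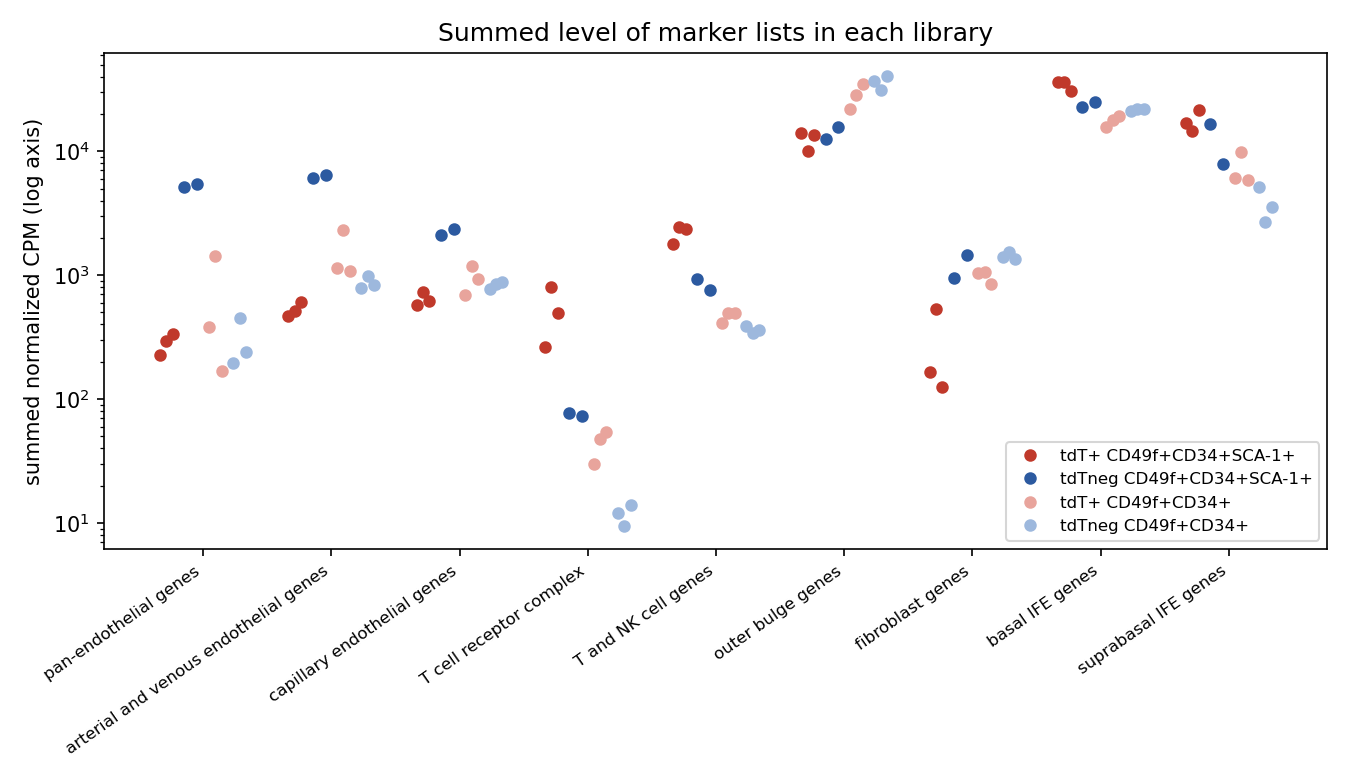
Summed normalized CPM of 9 marker lists in each of the 11 libraries, on a log axis, with 1 point per library and the 4 sorted groups in different colours. The pan-endothelial sums of the 2 tdTneg CD49f+CD34+SCA-1+ libraries (5156 and 5442 CPM) stand above those of all other libraries, and the T cell receptor sums of the 3 tdT+ CD49f+CD34+SCA-1+ libraries (261 to 796 CPM) stand above those of all others.

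The 7 called pan-endothelial genes were Ramp2, Egfl7, Tmem204, Tek, Rasip1, Rhoj and Arhgap29. Egfl7 (ENSMUSG00000026921, chromosome 2, 26580014 to 26593120) encodes a matrix protein secreted by vessel endothelium, and it was at 3.44, 5.17 and 2.94 normalized CPM in the tdT+ and 152 and 159 in the tdTneg libraries, a log2 fold change of -5.34 ± 0.93 (SE, edgeR adjusted p = 0.0158). Ramp2 (ENSMUSG00000001240, chromosome 11, 101246028 to 101259546) encodes the partner that turns the receptor encoded by Calcrl into an adrenomedullin receptor, and it was at 2.56, 1.82 and 0.568 normalized CPM in the tdT+ and 78.3 and 74.7 in the tdTneg libraries, a log2 fold change of -5.51 ± 0.62 (SE, edgeR adjusted p = 0.00183). Tek (ENSMUSG00000006386, chromosome 4, 94739289 to 94874976) encodes TIE2, the angiopoietin receptor, and it was at 2.29, 5.0 and 7.48 normalized CPM in the tdT+ and 149 and 133 in the tdTneg libraries, a log2 fold change of -4.85 ± 1.07 (SE, edgeR adjusted p = 0.0453). In all 3 genes both tdTneg libraries lay above every tdT+ library. Rasip1 and Rhoj, regulators of small GTPase signalling in vessels, had log2 fold changes of -3.88 and -2.86 (edgeR adjusted p = 0.0259 and 0.00139), and Tmem204 and Arhgap29 of -4.94 and -1.27 (edgeR adjusted p = 0.0395 and 0.0488). Ramp2 and Rhoj kept their calls in each of the 11 fits that left out 1 library (largest edgeR adjusted p = 0.0133 and 0.0186). Egfl7 and Rasip1 lost their calls without tdT+ CD49f+CD34+SCA-1+ replicate 1, 2 or 3 or tdTneg CD49f+CD34+SCA-1+ replicate 1 or 2 (largest edgeR adjusted p = 0.0816 and 0.158). Tmem204 was still called without tdT+ CD49f+CD34+ replicate 2 or 3 or tdTneg CD49f+CD34+ replicate 1, 2 or 3 but in no other fit that left out 1 library (largest edgeR adjusted p = 0.18). Tek was still called without tdT+ CD49f+CD34+ replicate 2 or 3 or tdTneg CD49f+CD34+ replicate 2 but in no other fit that left out 1 library (largest edgeR adjusted p = 0.197). Arhgap29 was still called without tdT+ CD49f+CD34+SCA-1+ replicate 3 or tdT+ CD49f+CD34+ replicate 3 but in no other fit that left out 1 library (largest edgeR adjusted p = 0.269).

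The pan-endothelial genes with the most counts were lower in every tdT+ library but were not called. Pecam1, the junction protein CD31, was at 13.4, 32.9 and 25.3 normalized CPM in the tdT+ and 688 and 728 in the tdTneg libraries (-4.89, edgeR adjusted p = 0.15), Eng, a co-receptor for BMP ligands, at 6.34, 16.8 and 9.03 normalized CPM in the tdT+ and 506 and 602 in the tdTneg libraries (-5.70, edgeR adjusted p = 0.0503), and Ptprb, the vascular phosphatase VE-PTP, at 10.6, 12 and 18.4 normalized CPM in the tdT+ and 668 and 606 in the tdTneg libraries (-5.54, edgeR adjusted p = 0.151). For all 3 the tdTneg values were high and the tdT+ values low. Pecam1 was called when every gene with a count was tested (edgeR adjusted p = 0.00632) and on the 5 CD49f+CD34+SCA-1+ libraries alone (edgeR adjusted p = 0.000375). Pecam1 was called as well with tdT+ CD49f+CD34+ replicate 2 omitted (edgeR adjusted p = 0.00551) and with tdT+ CD49f+CD34+ replicate 3 omitted (edgeR adjusted p = 0.0402). Eng was called by DESeq2 (adjusted p = 0.000266), when every gene with a count was tested (edgeR adjusted p = 0.000278), when 10 counts were required of each library (edgeR adjusted p = 0.0242) and on the 5 CD49f+CD34+SCA-1+ libraries alone (edgeR adjusted p = 0.000329). Eng was called as well with tdT+ CD49f+CD34+ replicate 2 omitted (edgeR adjusted p = 0.0309), with tdT+ CD49f+CD34+ replicate 3 omitted (edgeR adjusted p = 0.00572) and with tdTneg CD49f+CD34+ replicate 2 omitted (edgeR adjusted p = 0.0392). Ptprb was called by DESeq2 (adjusted p = 0.0114), when every gene with a count was tested (edgeR adjusted p = 0.00625) and on the 5 CD49f+CD34+SCA-1+ libraries alone (edgeR adjusted p = 0.000103). The same genes differed widely among the tdT+ CD49f+CD34+ libraries, which enter the shared spread. Eng, for example, was at 34.6, 117 and 1.49 CPM there, and the library with the highest value was replicate 2, the one described above as standing at the level of tdTneg libraries. Without that library 21 of the 35 pan-endothelial genes were called lower, and without tdT+ CD49f+CD34+ replicate 3, 24 were. In a fit on the 5 CD49f+CD34+SCA-1+ libraries alone, 33 of 35 were called lower, and DESeq2 called 20 and gave no adjusted p for Pecam1. In the other direction, 2 to 3 were called when 1 of the 5 libraries compared was left out (2 without tdT+ replicate 1 or either tdTneg replicate, 3 without tdT+ replicate 2 or 3). With the replicate block 8 were called, and Tek was not among them (edgeR adjusted p = 0.107). The smallest difference in the list was that of Sox7, an endothelial transcription factor, at 65.6, 61.9 and 64.1 normalized CPM in the tdT+ and 78.7 and 81 in the tdTneg libraries (-0.32, edgeR adjusted p = 0.302).

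Of 16 arterial and venous genes, 1 was called lower, against 2.06% of all genes, 13 were lower in every tdT+ library, against 17.2% of all genes, the median log2 fold change was -2.94, and the summed level was 466, 518 and 612 CPM in the tdT+ and 6137 and 6404 CPM in the tdTneg libraries. Vwf, von Willebrand factor, was at 19.5, 31.9 and 73.5 normalized CPM in the tdT+ and 2195 and 2346 in the tdTneg libraries (-5.77, edgeR adjusted p = 0.16). Selp and Sele, the selectins on which leukocytes roll, were at 33.1, 51.3 and 52.1 normalized CPM in the tdT+ and 1350.3 and 1319 in the tdTneg libraries and at 18.7, 63.5 and 32.8 normalized CPM in the tdT+ and 1211 and 1126 in the tdTneg libraries (edgeR adjusted p = 0.243 and 0.266). Vwf, Selp and Sele were called when every gene with a count was tested (edgeR adjusted p = 0.00744, 0.0301 and 0.0397), on the 5 CD49f+CD34+SCA-1+ libraries alone (edgeR adjusted p = 0.000857, 0.000113 and 0.00112) and with tdT+ CD49f+CD34+ replicate 2 omitted (edgeR adjusted p = 0.0118, 8.94e-05 and 0.00109). Ephb4, the ephrin receptor of veins, which keratinocytes also express, was the member called (94.6, 84.5 and 114 normalized CPM in the tdT+ and 188 and 219.7 in the tdTneg libraries, -1.06, edgeR adjusted p = 0.00531). On the 5 CD49f+CD34+SCA-1+ libraries alone 9 of the 16 were called lower. When tdT+ CD49f+CD34+ replicate 2 was omitted, 6 of the 16 were called, and without tdTneg CD49f+CD34+ replicate 2, 2 of them. Without tdTneg CD49f+CD34+SCA-1+ replicate 2, 0 were called, and Ephb4 was at an adjusted p of 0.0707.

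Of 14 capillary genes, 1 was called lower and 1 higher, against 2.06% and 0.251% of all genes, and the median log2 fold change was -2.70. Of the 14 log2 fold changes, 11 were negative and 3 positive, the largest being 3.01. The libraries did not overlap for 8 genes in the lower and 3 in the higher direction, against 17.2% and 15.8% of all genes. Plvap, the protein of endothelial diaphragms, was at 11, 29.8 and 19.7 normalized CPM in the tdT+ and 847 and 1075 in the tdTneg libraries and was not called (-5.58, edgeR adjusted p = 0.0936). Plvap was called when every gene with a count was tested (edgeR adjusted p = 0.00136) and on the 5 CD49f+CD34+SCA-1+ libraries alone (edgeR adjusted p = 0.000372). Plvap was called as well with tdT+ CD49f+CD34+ replicate 2 omitted (edgeR adjusted p = 0.0194) and with tdT+ CD49f+CD34+ replicate 3 omitted (edgeR adjusted p = 0.0149). Tcf15, a transcription factor of capillary endothelium, had 0 counts in all 3 tdT+ libraries and 3.01 and 1.93 CPM in the tdTneg libraries. With a floor of 3 counts per library, it was at least 14.5-fold lower (edgeR adjusted p = 0.0341). Rgcc, a regulator of the cell cycle, went the other way, at 39.5, 61.6 and 58.6 normalized CPM in the tdT+ and 23.2 and 11.2 in the tdTneg libraries (1.63, edgeR adjusted p = 0.0434). Neither call held under the replicate block (adjusted p = 0.091 for Tcf15 and 0.089 for Rgcc). Tcf15 was still called without tdT+ CD49f+CD34+ replicate 1, 2 or 3 or tdTneg CD49f+CD34+ replicate 2 but in no other fit that left out 1 library (largest edgeR adjusted p = 0.185). Rgcc was still called without tdTneg CD49f+CD34+SCA-1+ replicate 1, tdT+ CD49f+CD34+ replicate 3 or tdTneg CD49f+CD34+ replicate 2 but in no other fit that left out 1 library (largest edgeR adjusted p = 0.446). Without tdT+ CD49f+CD34+ replicate 2 or 3, 4 capillary genes were called lower, and on the 5 CD49f+CD34+SCA-1+ libraries alone 6 were. Of 7 lymphatic genes tested, edgeR called 0, with 4 lower at an unadjusted p below 0.05, and all 7 log2 fold changes were negative (median -2.81). DESeq2 called 2 of the 7 lower, the fit on the 5 libraries alone 3, and the fit without tdT+ CD49f+CD34+ replicate 2 called 1.

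**Figure D3:**
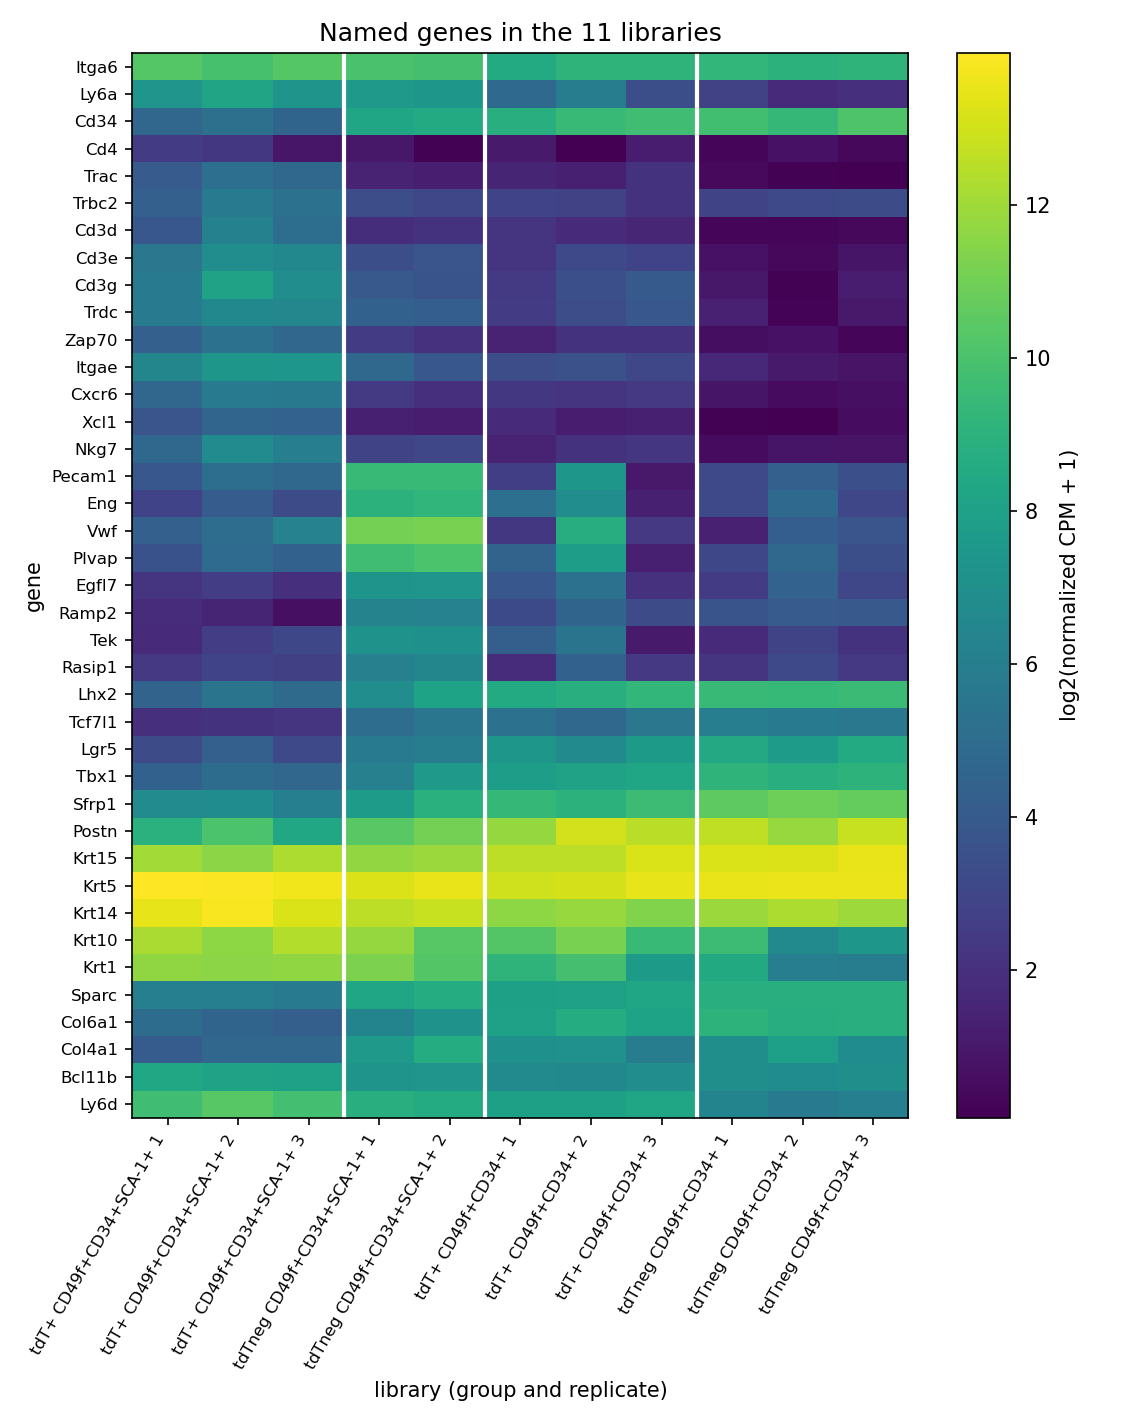
Level of 39 named genes in the 11 libraries, as log2(normalized CPM + 1) by colour, with 1 column per library and white lines between the 4 groups. From Pecam1 to Rasip1 the columns of the 2 tdTneg CD49f+CD34+SCA-1+ libraries are brightest, followed by replicate 2 of the tdT+ CD49f+CD34+ libraries, and from Trac to Nkg7 those of the 3 tdT+ CD49f+CD34+SCA-1+ libraries are brightest.

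Genes of the outer bulge, the compartment of quiescent hair follicle stem cells, were also lower in the tdT+ cells. Of 30 members, 11 were called lower (2.06% of all genes were) and 0 higher, and 23 were lower in every tdT+ library than in both tdTneg libraries, as 17.2% of all genes were. The median log2 fold change was -1.39. Unlike the endothelial genes, 0 of the 30 had its highest group mean in the tdTneg CD49f+CD34+SCA-1+ cells, and 1 had it in the tdT+ CD49f+CD34+SCA-1+ cells, the others being highest in CD49f+CD34+ cells. The summed level of the list overlapped between the groups (14124, 9987 and 13425 CPM in the tdT+ and 12549.8 and 15679 CPM in the tdTneg libraries), and Krt15 and Col17a1, described below, held most of its counts.

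Transcription factors were among the called genes. Tcf7l1 (ENSMUSG00000055799, chromosome 6, 72626378 to 72789254) encodes TCF3, a partner of beta-catenin, and it was at 3.04, 3.29 and 3.51 normalized CPM in the tdT+ and 31.5 and 44.8 in the tdTneg libraries, a log2 fold change of -3.54 ± 0.27 (SE, edgeR adjusted p = 0.000625). Lhx2 (ENSMUSG00000000247, chromosome 2, 38339281 to 38369733) encodes a LIM homeodomain factor that maintains the bulge, and it was at 21.5, 42.7 and 28.5 normalized CPM in the tdT+ and 119.5 and 280.1 in the tdTneg libraries, a log2 fold change of -2.69 ± 0.37 (SE, edgeR adjusted p = 0.00573). Tbx1, a T-box factor of the bulge, was at 19.8, 31.1 and 24.5 normalized CPM in the tdT+ and 68 and 189.6 in the tdTneg libraries, a log2 fold change of -2.36 ± 0.36 (SE, edgeR adjusted p = 0.00979). The tdT+ libraries were low for all 3, and of the tdTneg libraries replicate 2 was the higher. Lgr5, the R-spondin receptor that marks cycling follicle stem cells, was at 9.09, 19 and 7.74 normalized CPM in the tdT+ and 56.6 and 61.6 in the tdTneg libraries (-2.31, edgeR adjusted p = 0.0178). Sfrp1 and Dkk3, a Wnt antagonist and its relative, had log2 fold changes of -1.82 and -2.01 (edgeR adjusted p = 0.0236 and 0.0136). Grem1, a BMP antagonist, Ccn2, a matricellular protein, and Fgf1, a growth factor, had log2 fold changes of -2.26, -2.50 and -1.96 (edgeR adjusted p = 0.0282, 0.0104 and 0.0083). The remaining called members were Pdzrn3, a ubiquitin ligase, at 15.8, 19.5 and 20.3 normalized CPM in the tdT+ and 66.3 and 109.7 in the tdTneg libraries (-2.25, edgeR adjusted p = 0.00289) and Hmcn1, a matrix protein, at 67.7, 47.2 and 85.4 normalized CPM in the tdT+ and 131 and 155 in the tdTneg libraries (-1.10, edgeR adjusted p = 0.0335).

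Sox9, another bulge factor, was at 92.6, 108 and 163 normalized CPM in the tdT+ and 176 and 386 in the tdTneg libraries and was not called (log2 fold change -1.21, edgeR adjusted p = 0.187), although every tdT+ library was lower. Sox9 was called by DESeq2 (adjusted p = 0.0253) and when every gene with a count was tested (edgeR adjusted p = 0.0261). The members with the most counts, Krt15, Col17a1 and Postn, were not called either in the reported fit. Krt15, a keratin of bulge and basal cells, was at 4259, 3018 and 5039.6 normalized CPM in the tdT+ and 3425 and 3743 in the tdTneg libraries, with overlapping libraries (95% interval of the log2 fold change -0.47 to 0.86). Col17a1, a hemidesmosomal collagen, was at 7600.0, 4048 and 6029 normalized CPM in the tdT+ and 4566 and 4257 in the tdTneg libraries (95% interval -0.30 to 1.13), also with overlap. Postn, periostin, was at 502, 1075 and 333 normalized CPM in the tdT+ and 1361 and 2127 in the tdTneg libraries and was lower in every tdT+ library (-1.45, edgeR adjusted p = 0.219). Postn was called by DESeq2 (adjusted p = 0.024) and when every gene with a count was tested (edgeR adjusted p = 0.0295). Lhx2, Tcf7l1 and Pdzrn3 kept their calls in each of the 11 fits that left out 1 library (largest edgeR adjusted p = 0.0432, 0.00731 and 0.0273). Tbx1, Fgf1 and Ccn2 lost their calls without tdTneg CD49f+CD34+SCA-1+ replicate 2 (largest edgeR adjusted p = 0.0518, 0.0819 and 0.0926). Dkk3 and Sfrp1 lost their calls without tdT+ CD49f+CD34+SCA-1+ replicate 1 or 3 or tdTneg CD49f+CD34+SCA-1+ replicate 2 (largest edgeR adjusted p = 0.134 and 0.283). Grem1 lost its call without tdT+ CD49f+CD34+SCA-1+ replicate 1, 2 or 3 or tdTneg CD49f+CD34+SCA-1+ replicate 2 (largest edgeR adjusted p = 0.279). Lgr5 lost its call without tdT+ CD49f+CD34+SCA-1+ replicate 1 or 3 or tdTneg CD49f+CD34+SCA-1+ replicate 1 or 2 (largest edgeR adjusted p = 0.108). Hmcn1 was still called without tdT+ CD49f+CD34+SCA-1+ replicate 3, tdT+ CD49f+CD34+ replicate 1, 2 or 3 or tdTneg CD49f+CD34+ replicate 2 but in no other fit that left out 1 library (largest edgeR adjusted p = 0.299). The list's count fell to 3 without tdTneg CD49f+CD34+SCA-1+ replicate 2 and to 6 and 7 without tdT+ CD49f+CD34+SCA-1+ replicates 1 and 3, and with the replicate block it was 12, although Sfrp1 was then not called (edgeR adjusted p = 0.053).

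Neighbouring compartments of the follicle also held called genes, against 2.06% of all genes called lower. Of 10 inner bulge genes, 2 were called lower and 0 higher, with a median log2 fold change of -1.66. Bmp6, a BMP ligand of the inner bulge, was at 3.68, 3.63 and 6.92 normalized CPM in the tdT+ and 33.7 and 31.6 in the tdTneg libraries, a log2 fold change of -2.78 ± 0.40 (SE, edgeR adjusted p = 0.00715), and Il31ra, a cytokine receptor chain, was at 9.09, 7.89 and 9.91 normalized CPM in the tdT+ and 58.7 and 54 in the tdTneg libraries, a log2 fold change of -2.65 ± 0.43 (SE, edgeR adjusted p = 0.0113). Both genes were low in all 3 tdT+ libraries. Bmp6 kept its call in each of the 11 fits that left out 1 library (largest edgeR adjusted p = 0.0443). Il31ra lost its call without tdT+ CD49f+CD34+SCA-1+ replicate 1 or tdTneg CD49f+CD34+SCA-1+ replicate 1 or 2 (largest edgeR adjusted p = 0.0666). Of 12 secondary hair germ genes, 1 was called lower, Hhip, a Hedgehog-binding antagonist, at 0.613, 0 and 0.0516 normalized CPM in the tdT+ and 6.49 and 5.19 in the tdTneg libraries (-4.50, edgeR adjusted p = 0.0421). Hhip was still called without tdT+ CD49f+CD34+SCA-1+ replicate 1, tdT+ CD49f+CD34+ replicate 3 or tdTneg CD49f+CD34+ replicate 2 but in no other fit that left out 1 library (largest edgeR adjusted p = 0.18). It was also not called on the 5 CD49f+CD34+SCA-1+ libraries alone (edgeR adjusted p = 0.0632).

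Of 18 basal IFE genes edgeR and DESeq2 each called 0, while 6 were higher at an unadjusted p below 0.05, against 5.17% of all genes, and 0 were lower. Of the 18, 9 were higher in every tdT+ library, against 15.8% of all genes, and the median log2 fold change was 0.46. Krt5 and Krt14, the keratin pair of basal keratinocytes, were at 16209.9, 15602 and 13331 normalized CPM in the tdT+ and 9608 and 11985 in the tdTneg libraries and at 11354, 14634 and 9306 normalized CPM in the tdT+ and 6293 and 7203 in the tdTneg libraries. Both genes were higher in every tdT+ library, yet their 95% intervals, -0.13 to 1.09 and 0.16 to 1.45, included 0 for Krt5 and lay above 0 for Krt14 (edgeR adjusted p = 0.487 and 0.22). Of 34 suprabasal IFE genes edgeR and DESeq2 each called 0, with 0 higher and 3 lower at an unadjusted p below 0.05, against 9.42% of all genes lower. Krt10 and Krt1, keratins of differentiating cells, were at 4725, 3204 and 5433 normalized CPM in the tdT+ and 3511 and 1334 in the tdTneg libraries and at 3281, 3075 and 3314 normalized CPM in the tdT+ and 2396 and 1207 in the tdTneg libraries, and Serpinb2, a protease inhibitor, was at 2321, 2965 and 4097 normalized CPM in the tdT+ and 2359 and 1498 in the tdTneg libraries. The tdTneg library of replicate 2 was the lowest for all 3 genes, and the intervals were wide (-0.97 to 2.73, -0.99 to 2.67 and -0.75 to 2.15). The 95% interval lay within 1 of 0 for 3 of the 18 basal and 4 of the 34 suprabasal genes, so for most of them a 2-fold difference lay within the interval.

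Of 15 upper follicle genes, 1 was called higher, against 0.251% of all genes. At an unadjusted p-value under 0.05, 2 were lower, against 9.42%. Ly6d, a surface protein of the LY6 family, was at 847, 1318 and 899.6 normalized CPM in the tdT+ and 456 and 389 in the tdTneg libraries, a log2 fold change of 1.28 ± 0.26 (SE, edgeR adjusted p = 0.0312). Every tdT+ library was higher, but the gene was lost from the calls under the replicate block (adjusted p = 0.0725 by edgeR). Ly6d lost its call without tdT+ CD49f+CD34+SCA-1+ replicate 2 or 3, tdTneg CD49f+CD34+SCA-1+ replicate 1 or 2 or tdTneg CD49f+CD34+ replicate 3 (largest edgeR adjusted p = 0.367). Of 14 sebaceous gland genes edgeR called 0, with 1 lower at that unadjusted p.

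Of 19 fibroblast genes tested, 5 were called lower, against 2.06% of all genes, and 0 higher, all 19 log2 fold changes were negative and the median was -2.06. The summed level was 165, 529 and 124 CPM in the tdT+ and 948 and 1460.2 CPM in the tdTneg libraries. Sparc (ENSMUSG00000018593, chromosome 11, 55394500 to 55423183) encodes a secreted collagen-binding protein that bulge keratinocytes and endothelium also make, and it was at 66.6, 67.2 and 54.3 normalized CPM in the tdT+ and 318 and 418 in the tdTneg libraries, a log2 fold change of -2.55 ± 0.17 (SE, edgeR adjusted p = 0.00019). Fstl1, a secreted glycoprotein that binds BMP ligands, was at 8.53, 16.6 and 6.19 normalized CPM in the tdT+ and 121 and 142 in the tdTneg libraries, a log2 fold change of -3.66 ± 0.34 (SE, edgeR adjusted p = 0.000842). Col6a1 and Col6a2, chains of collagen VI, were at 30.4, 22.9 and 18.4 normalized CPM in the tdT+ and 82.1 and 149.8 in the tdTneg libraries and at 3.97, 9.26 and 2.68 normalized CPM in the tdT+ and 28.2 and 58.7 in the tdTneg libraries (edgeR adjusted p = 0.00485 and 0.0104). Crabp1, a retinoic acid binding protein, was low in all libraries, at 0.266, 0.227 and 0.0516 normalized CPM in the tdT+ and 3.45 and 1.3 in the tdTneg libraries (-3.64, edgeR adjusted p = 0.0174). Their levels in CD49f+CD34+ cells were not below those in the tdTneg CD49f+CD34+SCA-1+ cells for the collagen VI genes and Crabp1, Col6a1 being at 258, 418 and 281 CPM in tdT+ and 535, 420.3 and 458 CPM in tdTneg libraries. Sparc and Fstl1 kept their calls in each of the 11 fits that left out 1 library (largest edgeR adjusted p = 0.00251 and 0.00842). Col6a1 lost its call without tdTneg CD49f+CD34+SCA-1+ replicate 2 (largest edgeR adjusted p = 0.0555). Col6a2 lost its call without tdT+ CD49f+CD34+SCA-1+ replicate 1 or tdTneg CD49f+CD34+SCA-1+ replicate 2 (largest edgeR adjusted p = 0.096). Crabp1 lost its call without tdTneg CD49f+CD34+SCA-1+ replicate 1 (largest edgeR adjusted p = 0.127). On the 5 CD49f+CD34+SCA-1+ libraries alone Crabp1 was not called either (edgeR adjusted p = 0.0781). Without tdT+ CD49f+CD34+SCA-1+ replicate 2, 8 fibroblast genes were called, and without tdTneg CD49f+CD34+SCA-1+ replicate 2, 3 were.

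The 12 genes of hemidesmosomes and the epidermal basement membrane included 2 called genes, both lower, against 2.06% of all genes called lower. Col4a1 and Col4a2, the chains of the collagen IV network of basement membranes, were at 16.3, 24.6 and 23.9 normalized CPM in the tdT+ and 187 and 407 in the tdTneg libraries and at 14.9, 12.8 and 28.2 normalized CPM in the tdT+ and 164 and 323 in the tdTneg libraries (log2 fold changes -3.78 and -3.71, edgeR adjusted p = 0.00346 and 0.00143). They are neighbours whose annotated spans overlap by a few bases at their starts. Col4a1 and Col4a2 kept their calls in each of the 11 fits that left out 1 library (largest edgeR adjusted p = 0.0285 and 0.012). The other 10 genes of the list, among them the laminin-332 and integrin genes, were not called, and for 8 of the 12 the 95% interval lay within 1 of 0.

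In the signalling lists all called members were lower, as were 419 of the 470 called genes. The share of all genes called lower was 2.06%. In the Wnt list, 2 of 24 genes were called, while 13 log2 fold changes were positive and 11 negative, with a median of 0.06. At an unadjusted p under 0.05, 4 Wnt genes were higher and 9 lower, against 5.17% and 9.42% of all genes. Fzd4, the Frizzled receptor for norrin that acts in vessel endothelium, was at 1.87, 2.95 and 2.79 normalized CPM in the tdT+ and 61.5 and 64.7 in the tdTneg libraries, a log2 fold change of -4.64 ± 0.46 (SE, edgeR adjusted p = 0.0011), and Fzd2, another Frizzled receptor, was at 20.3, 24.3 and 19.3 normalized CPM in the tdT+ and 54.1 and 92.6 in the tdTneg libraries, a log2 fold change of -1.78 ± 0.29 (SE, edgeR adjusted p = 0.0115). Both were low in every tdT+ library. In the BMP and TGF-beta list, 3 of 24 were called. Acvrl1, the endothelial receptor ALK1, was at 9.91, 15.3 and 11.1 normalized CPM in the tdT+ and 106 and 100.3 in the tdTneg libraries, a log2 fold change of -3.09 ± 0.28 (SE, edgeR adjusted p = 0.000776). Smad6, an inhibitory SMAD, and Ltbp2, a latent TGF-beta binding protein, had log2 fold changes of -2.52 and -2.66 (edgeR adjusted p = 0.0058 and 0.00632). In the FGF and VEGF list, 2 of 20 were called, Nrp2, a co-receptor for VEGF and semaphorins, at 11.1, 21.5 and 16.1 normalized CPM in the tdT+ and 189 and 207 in the tdTneg libraries (-3.61, edgeR adjusted p = 0.000776) and Fgfr1, an FGF receptor, at 134, 115 and 149 normalized CPM in the tdT+ and 266 and 346 in the tdTneg libraries (-1.21, edgeR adjusted p = 0.0496). Of 21 guidance cue genes, 2 were called, the semaphorin genes Sema6a at 6.71, 12.5 and 7.23 normalized CPM in the tdT+ and 60.4 and 72.6 in the tdTneg libraries (-2.92, edgeR adjusted p = 0.00138) and Sema3e at 18.7, 21.1 and 19.5 normalized CPM in the tdT+ and 57.7 and 94.1 in the tdTneg libraries (-1.94, edgeR adjusted p = 0.0386). Fzd4, Acvrl1, Nrp2 and Sema6a kept their calls in each of the 11 fits that left out 1 library (largest edgeR adjusted p = 0.00979, 0.00746, 0.00746 and 0.0125). Smad6 and Ltbp2 lost their calls without tdTneg CD49f+CD34+SCA-1+ replicate 2 (largest edgeR adjusted p = 0.0628 and 0.0637). Fzd2 lost its call without tdT+ CD49f+CD34+SCA-1+ replicate 1 or 3 or tdTneg CD49f+CD34+SCA-1+ replicate 2 (largest edgeR adjusted p = 0.114). Fgfr1 was still called without tdT+ CD49f+CD34+ replicate 1 or 3 or tdTneg CD49f+CD34+ replicate 2 but in no other fit that left out 1 library (largest edgeR adjusted p = 0.431). Sema3e was still called without tdT+ CD49f+CD34+ replicate 1, 2 or 3 or tdTneg CD49f+CD34+ replicate 2 but in no other fit that left out 1 library (largest edgeR adjusted p = 0.363). Without tdT+ CD49f+CD34+ replicate 3, 4 Wnt and 5 guidance cue genes were called lower and 1 Wnt gene higher.

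Levels in the other population divided these signalling genes. Fzd4 was at 15.9, 15.3 and 5.4 CPM in tdT+ and 9.86, 12.8 and 7.76 CPM in tdTneg CD49f+CD34+ libraries, below its tdTneg CD49f+CD34+SCA-1+ level in each of them, and the same held for Nrp2 (36.9, 61.1 and 30.6 CPM in tdT+ and 26.7, 34 and 25.8 CPM in tdTneg) and Acvrl1 (21.4, 40.8 and 23.5 CPM in tdT+ and 34.2, 30.6 and 31.7 CPM in tdTneg). Fzd2 was at 245, 175 and 342 CPM in tdT+ and 419, 330.4 and 371 CPM in tdTneg CD49f+CD34+ libraries, and Fgfr1 at 553, 661 and 1007 CPM and 960.1, 642 and 878 CPM. These values of Fzd2 and Fgfr1 were above those of every CD49f+CD34+SCA-1+ library.

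The genes with the largest falls included members of no list. Among called genes with at least 5 CPM on average in a group, the 10 largest falls were those of Meox1, Col5a3, Krt73, Tmem255a, Tacr1, Amigo2, Hoxd9, Prex2, Ramp2 and Egfl7, with log2 fold changes from -6.27 to -5.34. Meox1, a homeobox factor, was at 0.133, 0.284 and 0.619 normalized CPM in the tdT+ and 24.3 and 28.2 in the tdTneg libraries, and Prex2, an activator of the GTPase RAC, at 1.81, 1.93 and 3.05 normalized CPM in the tdT+ and 113 and 99.4 in the tdTneg libraries. Tacr1, the receptor for substance P, was at 0.346, 2.39 and 0.31 normalized CPM in the tdT+ and 34.1 and 64.4 in the tdTneg libraries, and Amigo2, an adhesion protein, at 0.959, 1.08 and 2.27 normalized CPM in the tdT+ and 73.1 and 65.5 in the tdTneg libraries. All 4 were low in each tdT+ library and had edgeR adjusted p-values of 0.0364, 0.0245, 0.0251 and 0.0286. Col5a3, a chain of collagen V, Tmem255a, a membrane protein, and Hoxd9, a homeobox factor, had edgeR adjusted p-values of 0.0312, 0.0114 and 0.0108. Krt73, a keratin of the inner root sheath of growing hair, was at 0.746, 0.341 and 0.671 normalized CPM in the tdT+ and 34.8 and 37.5 in the tdTneg libraries, a log2 fold change of -5.92 ± 0.72 (SE, edgeR adjusted p = 0.00281). Krt73 kept its call in each of the 11 fits that left out 1 library (largest edgeR adjusted p = 0.0219). Tmem255a lost its call without tdT+ CD49f+CD34+SCA-1+ replicate 1 or tdTneg CD49f+CD34+SCA-1+ replicate 1 or 2 (largest edgeR adjusted p = 0.056). Hoxd9 lost its call without tdT+ CD49f+CD34+SCA-1+ replicate 3 or tdTneg CD49f+CD34+SCA-1+ replicate 2 (largest edgeR adjusted p = 0.0758). Tacr1 lost its call without tdT+ CD49f+CD34+SCA-1+ replicate 1 or 3 or tdTneg CD49f+CD34+SCA-1+ replicate 1 or 2 (largest edgeR adjusted p = 0.158). Amigo2 and Prex2 lost their calls without tdT+ CD49f+CD34+SCA-1+ replicate 1, 2 or 3 or tdTneg CD49f+CD34+SCA-1+ replicate 1 or 2 (largest edgeR adjusted p = 0.122 and 0.103). Meox1 was still called without tdT+ CD49f+CD34+ replicate 1, 2 or 3 or tdTneg CD49f+CD34+ replicate 2 but in no other fit that left out 1 library (largest edgeR adjusted p = 0.184). Col5a3 was still called without tdT+ CD49f+CD34+ replicate 1, 2 or 3 or tdTneg CD49f+CD34+ replicate 2 or 3 but in no other fit that left out 1 library (largest edgeR adjusted p = 0.179). With the replicate block Meox1, Amigo2 and Prex2 were not called (edgeR adjusted p = 0.0822, 0.076 and 0.0508).

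The largest rises on the same rule included those of Sit1, Trac, B3galt5, Xcl1, Cd3d, Cxcr6, Nkg7, Ctsw and Ptpn5, from 3.13 to 5.39 on the log2 scale. Of these 9 genes, 6 belong to the T cell lists described above. Ctsw encodes cathepsin W, a protease of cytotoxic lymphocytes, and it was at 42.5, 114 and 87.2 normalized CPM in the tdT+ and 10.8 and 6.45 in the tdTneg libraries, a log2 fold change of 3.23 ± 0.56 (SE, edgeR adjusted p = 0.0154). Ptpn5, a tyrosine phosphatase, was at 10.7, 31.5 and 27.3 normalized CPM in the tdT+ and 2.59 and 2.68 in the tdTneg libraries (3.13, edgeR adjusted p = 0.0341), and B3galt5, a galactosyltransferase of glycan chains, at 7.73, 33.3 and 13.3 normalized CPM in the tdT+ and 0.854 and 1.59 in the tdTneg libraries (3.89, edgeR adjusted p = 0.0366). All 3 genes were separated between the groups, with replicate 1 the lowest of the tdT+ libraries. Each of the 9 lost its call without tdTneg CD49f+CD34+SCA-1+ replicate 2. Cxcr6 lost its call without tdTneg CD49f+CD34+SCA-1+ replicate 2 (largest edgeR adjusted p = 0.0666). Trac, Cd3d and Ctsw lost their calls without tdTneg CD49f+CD34+SCA-1+ replicate 1 or 2 (largest edgeR adjusted p = 0.207, 0.183 and 0.225). Nkg7 lost its call without tdT+ CD49f+CD34+SCA-1+ replicate 2 or 3 or tdTneg CD49f+CD34+SCA-1+ replicate 1 or 2 (largest edgeR adjusted p = 0.261). Xcl1 lost its call without tdT+ CD49f+CD34+SCA-1+ replicate 1, 2 or 3 or tdTneg CD49f+CD34+SCA-1+ replicate 1 or 2 (largest edgeR adjusted p = 0.367). Ptpn5 lost its call without tdT+ CD49f+CD34+SCA-1+ replicate 2 or 3, tdTneg CD49f+CD34+SCA-1+ replicate 1 or 2 or tdTneg CD49f+CD34+ replicate 3 (largest edgeR adjusted p = 0.348). B3galt5 was still called without tdT+ CD49f+CD34+SCA-1+ replicate 1, tdT+ CD49f+CD34+ replicate 1, 2 or 3 or tdTneg CD49f+CD34+ replicate 2 but in no other fit that left out 1 library (largest edgeR adjusted p = 0.261). Sit1 was still called without tdT+ CD49f+CD34+ replicate 3 or tdTneg CD49f+CD34+ replicate 2 or 3 but in no other fit that left out 1 library (largest edgeR adjusted p = 0.467).

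By counts, the most abundant falls included those of Il6st, Ltbp4, Aplp2 and Col18a1. Il6st, the signal transducer gp130 of the interleukin-6 receptor family, was at 236, 163 and 323 normalized CPM in the tdT+ and 1410.1 and 1287 in the tdTneg libraries, a log2 fold change of -2.49 ± 0.52 (SE, edgeR adjusted p = 0.0356). Aplp2, a relative of the amyloid precursor protein, was at 347, 259 and 349.8 normalized CPM in the tdT+ and 703 and 762 in the tdTneg libraries (-1.20, edgeR adjusted p = 0.00993). Ltbp4, a latent TGF-beta binding protein, and Col18a1, a basement membrane collagen, had log2 fold changes of -1.41 and -1.46 (edgeR adjusted p = 0.025 and 0.0432). In all 4 genes both tdTneg libraries were above every tdT+ library. Aplp2 lost its call without tdTneg CD49f+CD34+SCA-1+ replicate 2 (largest edgeR adjusted p = 0.0984). Ltbp4 lost its call without tdT+ CD49f+CD34+SCA-1+ replicate 1 or tdTneg CD49f+CD34+SCA-1+ replicate 1 or 2 (largest edgeR adjusted p = 0.206). Il6st was still called without tdT+ CD49f+CD34+ replicate 2 or 3 or tdTneg CD49f+CD34+ replicate 2 but in no other fit that left out 1 library (largest edgeR adjusted p = 0.184). Col18a1 was still called without tdTneg CD49f+CD34+SCA-1+ replicate 1, tdT+ CD49f+CD34+ replicate 1 or 3 or tdTneg CD49f+CD34+ replicate 2 but in no other fit that left out 1 library (largest edgeR adjusted p = 0.514). With the replicate block Il6st, Ltbp4 and Col18a1 were not called (edgeR adjusted p = 0.0961, 0.0542 and 0.0789).

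The 5 most abundant rises were those of Ly6d, described above, Rgs2, Pou3f1, Dgcr6 and Fam25c. Rgs2, an inhibitor of G protein signalling, was at 114, 223 and 206 normalized CPM in the tdT+ and 63 and 46.6 in the tdTneg libraries, a log2 fold change of 1.73 ± 0.32 (SE, edgeR adjusted p = 0.0204). Pou3f1, a POU-domain transcription factor of differentiating keratinocytes, was at 195, 149 and 229 normalized CPM in the tdT+ and 92 and 73.6 in the tdTneg libraries (1.21, edgeR adjusted p = 0.0276). Dgcr6, whose product is little characterized, was at 126, 138 and 135 normalized CPM in the tdT+ and 63.8 and 53.3 in the tdTneg libraries (1.18, edgeR adjusted p = 0.00289), and Fam25c at 122, 125 and 148 normalized CPM in the tdT+ and 74.7 and 38.5 in the tdTneg libraries (1.22, edgeR adjusted p = 0.0364). The tdT+ libraries were higher throughout. Dgcr6 lost its call without tdTneg CD49f+CD34+SCA-1+ replicate 2 (largest edgeR adjusted p = 0.083). Rgs2 lost its call without tdT+ CD49f+CD34+SCA-1+ replicate 2 or 3 or tdTneg CD49f+CD34+SCA-1+ replicate 1 or 2 (largest edgeR adjusted p = 0.296). Pou3f1 lost its call without tdT+ CD49f+CD34+SCA-1+ replicate 1 or 3 or tdTneg CD49f+CD34+SCA-1+ replicate 1 or 2 (largest edgeR adjusted p = 0.406). Fam25c was still called without tdTneg CD49f+CD34+SCA-1+ replicate 1, tdT+ CD49f+CD34+ replicate 1, 2 or 3 or tdTneg CD49f+CD34+ replicate 2 but in no other fit that left out 1 library (largest edgeR adjusted p = 0.311). Fam25c was also not called under the replicate block (adjusted p = 0.0661 by edgeR) or on the 5 CD49f+CD34+SCA-1+ libraries alone (edgeR adjusted p = 0.0653).

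In each of 4 further lists 1 gene was called, and it was lower, against 2.06% of all genes called lower. Of 14 Langerhans cell and MHC class II genes, 1 was called, Mfge8, a phosphatidylserine-binding protein that other skin cells also make, at 20.6, 26.3 and 33.9 normalized CPM in the tdT+ and 130.2 and 161 in the tdTneg libraries (-2.44, edgeR adjusted p = 0.00126). Cd74, the invariant chain, was at 161, 94.5 and 164 normalized CPM in the tdT+ and 284 and 327 in the tdTneg libraries and was not called (edgeR adjusted p = 0.534). Cd74 was called on the 5 CD49f+CD34+SCA-1+ libraries alone (edgeR adjusted p = 0.0338). Of 13 pericyte and smooth muscle genes, 1 was called, Cspg4, the proteoglycan NG2, at 51.3, 42.8 and 67.6 normalized CPM in the tdT+ and 99.4 and 197 in the tdTneg libraries (-1.46, edgeR adjusted p = 0.0341). The list as a whole was not lower, with 7 positive and 6 negative log2 fold changes and a median of 0.20. Csf1, a macrophage growth factor, was the 1 called gene of 16 chemokine and cytokine genes (38.4, 26.3 and 38.7 normalized CPM in the tdT+ and 98.3 and 90.1 in the tdTneg libraries, -1.45, edgeR adjusted p = 0.026). In that list 9 log2 fold changes were positive and 7 negative, with a median of 0.34. Lipe, hormone-sensitive lipase, was called in a list of adipocyte genes of which 3 were tested (7.03, 6.98 and 8.98 normalized CPM in the tdT+ and 27.7 and 26.8 in the tdTneg libraries, -1.83, edgeR adjusted p = 0.0178). All 4 called genes were lower in every tdT+ library. Mfge8 kept its call in each of the 11 fits that left out 1 library (largest edgeR adjusted p = 0.0125). Lipe lost its call without tdT+ CD49f+CD34+SCA-1+ replicate 1 or tdTneg CD49f+CD34+SCA-1+ replicate 1 or 2 (largest edgeR adjusted p = 0.114). Csf1 lost its call without tdT+ CD49f+CD34+SCA-1+ replicate 1, 2 or 3 or tdTneg CD49f+CD34+SCA-1+ replicate 1 or 2 (largest edgeR adjusted p = 0.146). Cspg4 was still called without tdTneg CD49f+CD34+SCA-1+ replicate 1, tdT+ CD49f+CD34+ replicate 1, 2 or 3 or tdTneg CD49f+CD34+ replicate 2 but in no other fit that left out 1 library (largest edgeR adjusted p = 0.4).

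No gene was called by edgeR among 10 melanocyte, 8 Schwann cell, 20 immediate early, 24 S phase and mitosis, 13 Notch, 22 interferon response, 12 MHC class I, 9 aryl hydrocarbon receptor, 12 tight and gap junction and 12 cadherin and desmosome genes. At an unadjusted p-value under 0.05, which 5.17% of all genes passed as higher and 9.42% as lower, 4 melanocyte genes and 1 each of the Notch, interferon response, aryl hydrocarbon receptor and tight and gap junction genes were lower. Higher were 2 immediate early genes and 1 each of the Schwann cell, MHC class I, aryl hydrocarbon receptor and cadherin and desmosome genes. No S phase or mitosis gene passed in either direction. On the 5 CD49f+CD34+SCA-1+ libraries alone, 3 interferon response, 1 melanocyte and 1 aryl hydrocarbon receptor genes were called lower. Without 1 library, 1 melanocyte (tdT+ CD49f+CD34+SCA-1+ replicate 2), 1 interferon response and 1 aryl hydrocarbon receptor gene (both tdT+ CD49f+CD34+ replicate 3) were. The 95% interval lay within 1 of 0 for 10 of 12 MHC class I, 13 of 24 S phase and mitosis and 12 of 20 immediate early genes. Over all lists, 585 of the 600 members were tested, and the lists held 44 of the 419 called lower and 18 of the 51 called higher genes.

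**Figure D4:**
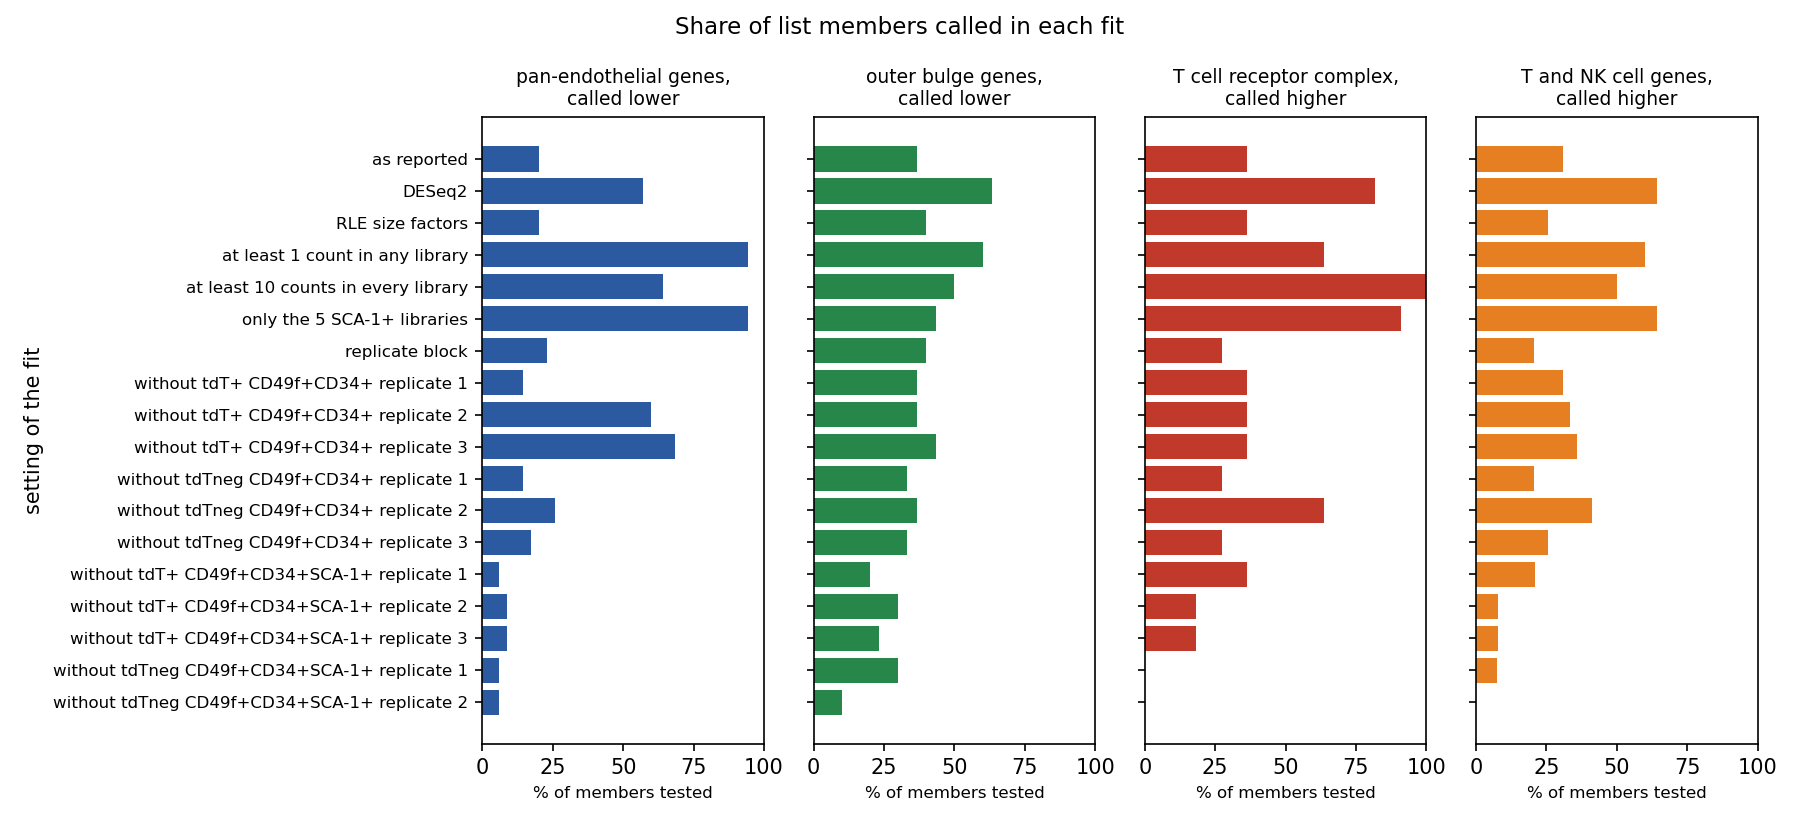
Share of the tested members of 4 lists that was called, in percent, in the fit as reported and in 17 other fits, with 1 bar per fit. For the pan-endothelial genes the count called lower ranged from 2 to 33 of 35 and for the T and NK cell genes the count called higher ranged from 0 to 25, with the lowest shares where a CD49f+CD34+SCA-1+ library was left out.

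The CD49f+CD34+ cells give the same contrast of tdT+ with tdTneg cells in 6 other libraries. The effect of tdT differed between the populations for 79 genes (0.389% of those tested, with 2 positive and 77 negative differences, taken as CD49f+CD34+SCA-1+ minus CD49f+CD34+), by an interaction term in the same fit. Of the 419 genes called lower in CD49f+CD34+SCA-1+ cells, 73 were among them, and of the 51 called higher, 0 were. Among named genes, Cd34 had log2 fold changes of -3.68 in CD49f+CD34+SCA-1+ and -0.36 in CD49f+CD34+ cells, a difference of -3.31 (SE 0.43, edgeR adjusted p = 0.0132). For Ramp2 these were -5.51 and -0.10 (difference -5.41, edgeR adjusted p = 0.0189), for Fzd4 -4.64 and 0.27 (difference -4.91, edgeR adjusted p = 0.00988), and for Nrp2 -3.61 and 0.57 (difference -4.19, edgeR adjusted p = 0.00855). Of the outer bulge genes, Tcf7l1 was the only one called for the difference (-3.54 against -0.60, edgeR adjusted p = 0.00988). Sparc was lower in tdT+ cells of both populations by point estimate, at -2.55 and -0.73, and the difference was called (edgeR adjusted p = 0.00988). The number of genes called for the difference was 1 without tdTneg CD49f+CD34+SCA-1+ replicate 2, 20 without its replicate 1, 36 and 47 when tdT+ CD49f+CD34+SCA-1+ replicates 1 and 3 were omitted, 23 and 31 without tdTneg CD49f+CD34+ replicates 1 and 3, and 376 without tdT+ CD49f+CD34+ replicate 3. When tdT+ CD49f+CD34+ replicate 2, the library at the level of the tdTneg libraries, was omitted, it was 63. Of the 21 named genes called for the difference, 15 were still called then and all 21 kept their sign. The differences were then -3.26 for Cd34, -4.77 for Ramp2, -4.71 for Fzd4, -3.84 for Nrp2, -3.16 for Tcf7l1 and -1.85 for Sparc. Their edgeR adjusted p-values were 0.0262, 0.0219, 0.0199, 0.00466, 0.00466 and 0.021 in that order. Other omissions kept fewer or more of the 21 calls. Omitting tdTneg CD49f+CD34+ replicate 1 left 8 of them, omitting replicate 3 of that group left 11, and omitting tdT+ CD49f+CD34+ replicate 3 left 21. Cd34 and Ramp2 lost the call when tdTneg CD49f+CD34+ replicate 1 was omitted (edgeR adjusted p = 0.0523 and 0.0756). Fzd4, Nrp2, Tcf7l1 and Sparc kept it there.

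No T cell gene was called for the difference. For Cd3e the log2 fold changes were 2.95 and 3.28 in the SCA-1+ and the SCA-1 negative population (edgeR adjusted p of the difference = 0.889), and for Itgae 2.85 and 2.75 (edgeR adjusted p = 0.973). The levels differed, however, Itgae being at 9.11, 10.4 and 7.33 CPM in tdT+ and 2.11, 1.11 and 0.756 CPM in tdTneg CD49f+CD34+ libraries. Of the 51 genes called higher, 50 had their highest group mean in the tdT+ CD49f+CD34+SCA-1+ cells, against 29.4% of all genes tested. A gene called higher cannot have that mean in the tdTneg CD49f+CD34+SCA-1+ cells, so this count is a description too. The 419 lower genes fell mainly into those with their highest mean in tdTneg CD49f+CD34+SCA-1+ cells (202 genes, 48.2%) and those with it in tdTneg CD49f+CD34+ cells (184 genes, 43.9%), against 17.8% and 28.5% of all genes tested. A gene called lower cannot have its highest mean in the tdT+ CD49f+CD34+SCA-1+ cells, so these shares are a description. The pan-endothelial genes belong to the first kind, and all 11 called outer bulge genes were highest in CD49f+CD34+ cells.

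**Figure D5:**
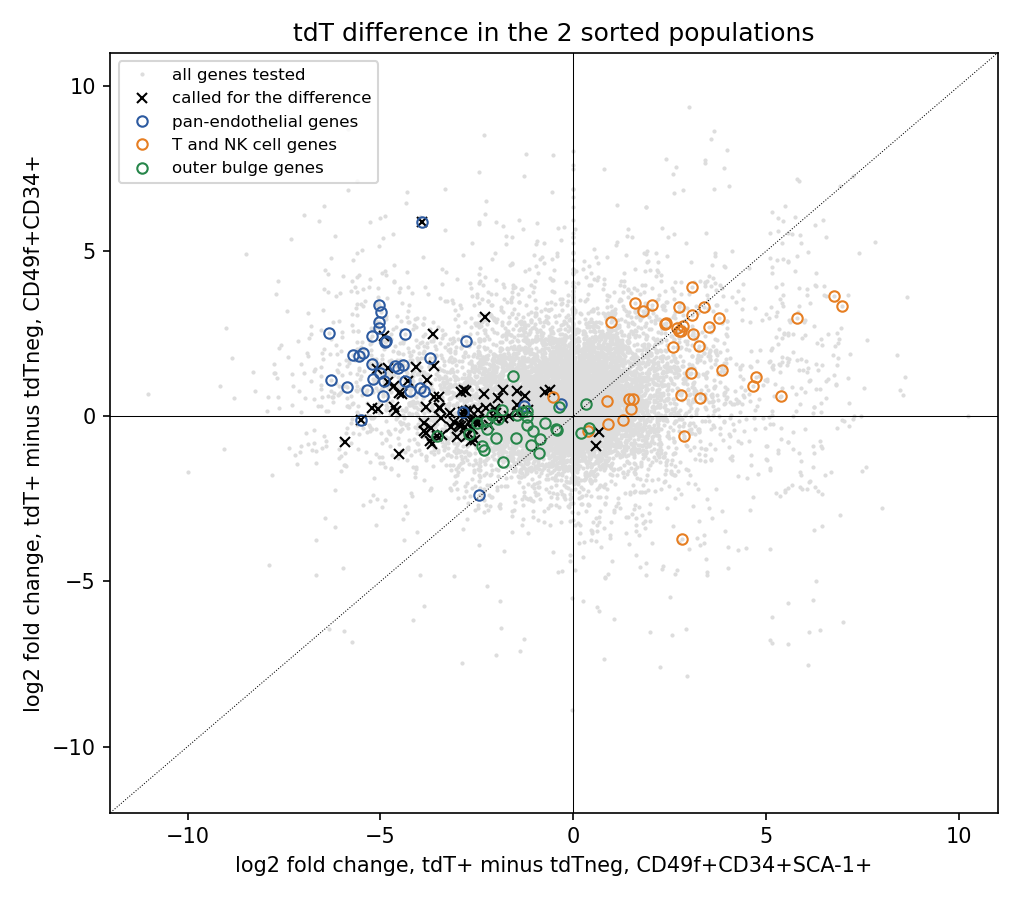
Log2 fold change of tdT+ against tdTneg cells in CD49f+CD34+SCA-1+ cells (x axis) and in CD49f+CD34+ cells (y axis), for all 20307 genes tested (light dots), the 79 genes called for the difference (crosses) and members of 3 lists (open circles), with a dotted line of equal change. Pan-endothelial genes lie left of 0, with Sox17 at the highest y value among them, and 77 of the 79 genes called for the difference lie above the line of equal change.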

How the data were processed

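RNA of FACS-sorted EBS cells was measured in 11 libraries, and the 5 libraries of CD49f+CD34+SCA-1+ cells were compared by tdT status. The authors counted reads per gene with featureCounts after STAR alignment to mm10 with Ensembl annotation, and the deposited values are raw counts. The strand setting of the counting is not given in the sources used here, so overlapping and antisense genes may share reads. Groups and replicate numbers were taken from the sample titles. The 1 row that is no Ensembl gene was left out of totals and tests.

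The count tests ran in R 4.3.3 with edgeR 4.0.16 (TMM, filterByExpr on the 4 groups, glmQLFit and glmQLFTest with 1 mean per group over all 11 libraries and Benjamini-Hochberg adjustment over 20307 genes). A call needs an adjusted p below 0.05 and a log2 fold change beyond 1 in either direction. Alternatives were DESeq2 1.42.0, RLE size factors, other count filters, the 5 libraries alone, the replicate number as a block, no fold threshold and omission of each library. Gene positions are those of GRCm38. Figures were drawn in Python 3.11.15 with matplotlib 3.10.9. Depth ranged from 17409131 to 46542177 counts, and no 2 libraries of the same CD49f+CD34+SCA-1+ group agreed within sampling noise.

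The members compared and the 35 gene lists were chosen with earlier results of these data known. The genes named are the 10 largest rises and falls among called genes with at least 5 CPM in a group, the 5 most abundant rises and falls, the called members of each list (at most the 5 most abundant of more) with its 3 most abundant members, and the genes of the sort and driver. Some genes that this rule selects are not reported here. Tmem204, Sox7, Cd8a, Cd8b1, Sox9, Sox17 and, where a list had more than 5 called genes, the less abundant ones were chosen after their values were seen. The methods count 3 biological replicates in all, each of 2 mice, which was read as 1 pool for all libraries with the same replicate number and used for the block; the sources do not state it. Over 15 such pairs the median correlation of deviations from the mean of their group was 0.12 (-0.55 to 0.74), against -0.04 over 30 other pairs.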

Additional observations from a re-analysis of the deposited data

Results flagged for a closer look

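By the interaction term of the edgeR fit, the log2 fold change of tdT+ against tdTneg was called as different between the SCA-1+ and the SCA-1 negative population for 79 genes, and 21 of them are named in the text. These calls depended on single libraries, as described above. Without tdT+ CD49f+CD34+SCA-1+ replicate 1, 10 of the 21 were still called, and Krt73, Bgn, Lama4, Lipe and Col4a2 were among those lost. The same genes were lost when tdTneg CD49f+CD34+ replicate 1 or 3 was omitted, where 8 and 11 of the 21 stayed called. The values below are differences between the populations in the log2 fold change of tdT+ against tdTneg cells. Each was negative, also in every fit that left out 1 library.

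Among genes known from endothelial cells, the differences were -9.81 for Sox17, -5.41 for Ramp2, -4.91 for Fzd4, -4.19 for Nrp2, -3.56 for Calcrl, -3.0 for Rhoj and -2.92 for Acvrl1. Sox17, an endothelial transcription factor, was at 0.826, 0.511 and 1.75 normalized CPM in the tdT+ and 14.8 and 16.7 in the tdTneg libraries of CD49f+CD34+SCA-1+ cells, and at 0.77, 5.03 and 0.661 CPM in tdT+ and 0.0207, 0.0793 and 0 CPM in tdTneg CD49f+CD34+ libraries. Its log2 fold change between the CD49f+CD34+SCA-1+ groups, -3.93, was not called (edgeR adjusted p = 0.0927). Sox17 was called by DESeq2 (adjusted p = 0.000965) and when every gene with a count was tested (edgeR adjusted p = 0.0101). Sox17 was called as well on the 5 CD49f+CD34+SCA-1+ libraries alone (edgeR adjusted p = 0.00446) and with tdT+ CD49f+CD34+ replicate 2 omitted (edgeR adjusted p = 0.0383). The difference rests on values near 0 in the latter, among which a fitted fold change is no bound. For matrix genes they were -3.38 for Bgn, -2.96 for Col4a2, -2.81 for Fstl1, -2.22 for Lama4, -2.16 for Hspg2 and -1.82 for Sparc. For genes of the bulge or the sort they were -3.31 for Cd34 and -2.94 for Tcf7l1. The remaining ones were -5.15 for Krt73, -3.68 for Hoxd8, -3.67 for Sema6a, -2.63 for Lipe, -2.54 for Gfra1 and -1.88 for Trpv4.

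The row of the deposited tables that is no Ensembl gene entered no comparison. It was at 254, 224 and 307 CPM in the 3 tdT+ CD49f+CD34+SCA-1+ libraries, above 4.89 and 4.10 CPM in the tdTneg CD49f+CD34+SCA-1+ libraries. Groups of 2 or 3 libraries were not tested for a single library that stands apart.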

How the results depend on the processing

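With 3 against 2 libraries, the counts of called genes moved with many settings. The total stayed nearer to the reported 470 with RLE size factors (478), the replicate block (404) and no fold threshold (518). The direction of named genes other than Gfra3 did not move, except that leaving out 1 library gave Ly6a log2 fold changes from -0.27 (tdT+ CD49f+CD34+SCA-1+ replicate 2 omitted) to 0.33 (replicate 3 omitted), against 0.17 as reported. Gfra3, at or near 0 in every library, ran from -5.93 (tdT+ CD49f+CD34+SCA-1+ replicate 1 omitted) to 1.86 (tdTneg replicate 2 omitted), against -4.09. Over 133 named genes and the alternatives, 1844 values kept their direction and side of the threshold, 311 lost the call, 65 gained it and 2 reversed. Of 93 named called genes, 26 were called in every fit that left out 1 library.

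DESeq2 called 1126 genes (199 higher, 927 lower) and 777 for the difference between populations, with 20 pan-endothelial, 19 outer bulge, 9 T cell receptor and 25 T and NK cell genes. With at least 1 count in any library as the filter, edgeR called 885 (809 lower) and 568, with 33, 18, 7 and 24 list genes in that order. With at least 10 counts in every library, 263 were called for the difference. On the 5 CD49f+CD34+SCA-1+ libraries alone, 885 were called (121 higher, 764 lower), with 33 pan-endothelial, 10 receptor and 25 T and NK cell genes. The replicate block gave 404 calls (34 higher, 370 lower) and 77 for the difference, shared 349 of the 470 reported calls (74.3%), and, among named genes, changed the calls of those for which its p is printed and of Runx3 (edgeR adjusted p = 0.086).

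Leaving out 1 library gave 97 to 700 calls, 0 to 70 higher and 97 to 630 lower, 1 to 376 for the difference, 2 to 24 pan-endothelial, 3 to 13 outer bulge, 0 to 7 receptor and 0 to 16 T and NK cell genes. The lowest value in each case came without tdTneg CD49f+CD34+SCA-1+ replicate 2, jointly with other libraries for the pan-endothelial and receptor genes. With RLE size factors 478 genes were called, while Sit1, Il2rb and Runx3 were not (edgeR adjusted p = 0.0524, 0.0559 and 0.0574), and without a fold threshold 518. Why settings differ was not tested, except that leaving out a library also leaves fewer samples. Depth limits genes near 0 CPM, where a floor of 3 counts in the shallowest library was 0.17 CPM.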

Other observations

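Genes outside the lists, chosen after their values were seen, extend the description of the cells. Of genes of the matrix, Hspg2, Bgn, Lama4 and Fbln2 were called lower. Hspg2, the heparan sulphate proteoglycan perlecan, was at 109.9, 126 and 99.5 normalized CPM in the tdT+ and 659 and 859 in the tdTneg libraries, a log2 fold change of -2.76 ± 0.22 (SE, edgeR adjusted p = 0.000625). Bgn, biglycan, was at 13.1, 35.3 and 25.2 normalized CPM in the tdT+ and 523 and 604 in the tdTneg libraries, a log2 fold change of -4.52 ± 0.47 (SE, edgeR adjusted p = 0.00138). Lama4, a laminin chain of vessel basement membranes, was at 5.6, 11.6 and 7.38 normalized CPM in the tdT+ and 50.2 and 49.9 in the tdTneg libraries (-2.61, edgeR adjusted p = 0.00139), and Fbln2, fibulin-2, at 8.55, 18.6 and 21.3 normalized CPM in the tdT+ and 237 and 378 in the tdTneg libraries (-4.26, edgeR adjusted p = 0.00712). In all 4 genes both tdTneg libraries were above every tdT+ library. Hspg2, Bgn and Lama4 kept their calls in each of the 11 fits that left out 1 library (largest edgeR adjusted p = 0.00731, 0.0117 and 0.0125). Fbln2 lost its call without tdTneg CD49f+CD34+SCA-1+ replicate 2 (largest edgeR adjusted p = 0.0518).

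Receptors for ligands of the GDNF family were among the called genes. Ret, the shared receptor tyrosine kinase, was at 1.76, 2.5 and 1.91 normalized CPM in the tdT+ and 54.7 and 73.7 in the tdTneg libraries, a log2 fold change of -4.97 ± 0.61 (SE, edgeR adjusted p = 0.00289). Gfra1 and Gfra2, the co-receptors that bind the ligands, were at 6.13, 7.33 and 6.35 normalized CPM in the tdT+ and 30.8 and 51.6 in the tdTneg libraries and at 1.2, 0.511 and 0.206 normalized CPM in the tdT+ and 9.33 and 7.12 in the tdTneg libraries (edgeR adjusted p = 0.000776 and 0.0098). The tdT+ libraries were low for all 3, whereas the ligand gene Gdnf was at 34.5, 10.6 and 23.1 normalized CPM in the tdT+ and 14.7 and 10.6 in the tdTneg libraries, with overlap, and was not called (edgeR adjusted p = 0.476). In CD49f+CD34+ cells Gfra1 was at 195, 164 and 232 CPM in tdT+ and 190.2, 206 and 239 CPM in tdTneg libraries, above every CD49f+CD34+SCA-1+ library, and Ret was at 6.93, 11.7 and 3.31 CPM and 25.6, 18.6 and 7.15 CPM, below the tdTneg CD49f+CD34+SCA-1+ level. The co-receptor gene Gfra3 was at or near 0 in all 5 libraries and was not called (edgeR adjusted p = 0.315). Ret, Gfra1 and Gfra2 kept their calls in each of the 11 fits that left out 1 library (largest edgeR adjusted p = 0.0224, 0.00731 and 0.0475).

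Calcrl, whose product forms the adrenomedullin receptor with that of Ramp2, was at 23.2, 13.5 and 16.1 normalized CPM in the tdT+ and 133 and 109 in the tdTneg libraries (-2.78, edgeR adjusted p = 0.00627). Ramp3, another partner gene of that receptor, went the other way, at 16.1, 26.8 and 16.8 normalized CPM in the tdT+ and 8.89 and 9.21 in the tdTneg libraries, without overlap, and was not called (log2 fold change 1.13, edgeR adjusted p = 0.117). Ramp3 was called by DESeq2 (adjusted p = 0.0161). The mechanically gated channel gene Piezo1 was at 62.1, 58.8 and 78.7 normalized CPM in the tdT+ and 206 and 263 in the tdTneg libraries (-1.82, edgeR adjusted p = 0.00979) and the cation channel gene Trpv4 at 12.6, 8.92 and 11.8 normalized CPM in the tdT+ and 58 and 80.7 in the tdTneg libraries (-2.64, edgeR adjusted p = 0.000776). Hoxd8, a homeobox gene next to Hoxd9, was at 1.81, 2.21 and 0.929 normalized CPM in the tdT+ and 23.2 and 25.3 in the tdTneg libraries (-3.87, edgeR adjusted p = 0.000776). Calcrl, Trpv4 and Hoxd8 kept their calls in each of the 11 fits that left out 1 library (largest edgeR adjusted p = 0.0416, 0.00899 and 0.00746). Piezo1 lost its call without tdTneg CD49f+CD34+SCA-1+ replicate 2 (largest edgeR adjusted p = 0.101).

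Several genes of the inner root sheath had their highest group mean in the tdTneg CD49f+CD34+SCA-1+ cells. Krt71 was at 97.9, 7.1 and 3.46 normalized CPM in the tdT+ and 194 and 225 in the tdTneg libraries, Krt25 at 40.9, 0.909 and 3.2 normalized CPM in the tdT+ and 109 and 101 in the tdTneg libraries, Krt27 at 16.3, 1.02 and 2.43 normalized CPM in the tdT+ and 50.3 and 40.3 in the tdTneg libraries and Tchh at 110.1, 9.88 and 12.9 normalized CPM in the tdT+ and 229 and 207 in the tdTneg libraries. Replicate 1 stood above the other tdT+ libraries for each, and none of the 4 was called in the reported fit (edgeR adjusted p = 0.367, 0.329, 0.202 and 0.25), unlike Krt73. Without that library their log2 fold changes went from -2.53, -2.80, -2.77 and -2.30 to -5.31, -5.67, -4.71 and -4.26, and all 4 were called. Krt71 and Krt25 were called with tdT+ CD49f+CD34+SCA-1+ replicate 1 omitted (edgeR adjusted p = 0.033 and 0.0371). Krt27 and Tchh were called when every gene with a count was tested (edgeR adjusted p = 0.0368 and 0.0452) and with tdT+ CD49f+CD34+SCA-1+ replicate 1 omitted (edgeR adjusted p = 0.0263 and 0.00907). Krt26, a further keratin of that sheath, was highest in the tdT+ cells, at 2.29, 0.909 and 1.96 normalized CPM in the tdT+ and 0.601 and 1.05 in the tdTneg libraries, with overlap, and was not called (edgeR adjusted p = 0.816). Among transcription factors of lymphocytes, Ikzf1 was at 29.1, 48.2 and 47.1 normalized CPM in the tdT+ and 7.34 and 11.1 in the tdTneg libraries (2.17, edgeR adjusted p = 0.038) and Runx3 at 25.8, 27.3 and 37.3 normalized CPM in the tdT+ and 8.58 and 10.2 in the tdTneg libraries (1.68, edgeR adjusted p = 0.0481), both higher in every tdT+ library. Ikzf1 was still called without tdT+ CD49f+CD34+ replicate 1, 2 or 3 or tdTneg CD49f+CD34+ replicate 2 or 3 but in no other fit that left out 1 library (largest edgeR adjusted p = 0.259). Runx3 was still called without tdT+ CD49f+CD34+ replicate 3 or tdTneg CD49f+CD34+ replicate 2 or 3 but in no other fit that left out 1 library (largest edgeR adjusted p = 0.371).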
